A study of Mus musculus with 30 samples.

Results

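Cardamonin and AEG 3482 were compared directly, library against library, in a mouse tail fibroblast line, so that the differences below separate the 2 compounds from each other. Cardamonin is a plant chalcone, and AEG 3482 is known here only by its code name. Genes entered the comparison if they reached at least 1 TPM (a share of the library's transcripts that takes account of transcript length) in at least 3 of the 6 libraries of these compounds. That left 12454 of the 29861 genes in the deposited table. Of these, 11501 reached 1 TPM in all 6 libraries. The 379 genes that did so in exactly 3 libraries stood just inside the limit, and 289 that did so in 2 stood just outside.

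The 6 libraries came from 30 in the series, which held 8 compounds with 3 libraries each and the solvent DMSO with 6. The title of the study sets NRF2-dependent against NRF2-independent routes to cellular stress resistance. The cells were the line CCG-HTA-1, grown from tails of UMHet3 mice and used at passage 4. The labels give mice aged 5 to 8 weeks for the Cardamonin, AEG 3482 and DMSO libraries. All groups shared high-glucose medium without pyruvate, 10% serum, ambient oxygen and 10% CO2 at 37 degrees. Cardamonin or AEG 3482 was added 24 hours after plating, and RNA was taken 48 hours after that. DMSO libraries are given beside the 2 compounds as a reference level. Each compound was also compared with DMSO, but the p-values of those comparisons are not reported here. The DMSO libraries and those of the other compounds share in the estimate of spread between replicates. The series text gives 5 DMSO replicates, while 6 libraries are labelled DMSO, and all 6 were used. The doses are not given in the sources used here, so differences between the compounds are differences at unstated doses. All libraries came from 1 line, so the tests measure the spread between cultures or libraries, which may be technical. Library numbers ran consecutively within each group, so processing order and compound cannot be told apart.

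NRF2 is a transcription factor that KEAP1, an adaptor of a CUL3 ubiquitin ligase, marks for destruction. Electrophiles and oxidants that modify KEAP1 let NRF2 accumulate, pair with small MAF proteins and raise genes of glutathione synthesis, NADPH supply, quinone reduction and heme breakdown. ATF4 is translated when the integrated stress response is active and raises genes that import amino acids, make them and load them onto tRNA. HSF1 raises cytosolic chaperones when unfolded protein accumulates. Dermal fibroblasts secrete fibrillar collagens, proteoglycans and crosslinking enzymes, under control of TGF-beta and of the mechanical signals that act through YAP, and they answer type I interferon through a complex that holds STAT2 and IRF9.

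Summed over the table, the 6 libraries held 927024 to 929769 TPM. How many reads each library had cannot be read from TPM. In each library the top 20 genes held 16.9% to 17.6% of that sum with Cardamonin, 14.6% to 14.7% with AEG 3482 and 16.7% to 17.4% in DMSO. Pearson correlations of log2(TPM + 1) across genes lay between 0.990 and 0.992 for replicates of Cardamonin and between 0.991 and 0.992 for those of AEG 3482. Cardamonin replicate 3 had the lowest level among its group in many genes of the matrix, and some of the counts of genes below are also given without it. Values of fibroblast markers and of markers of other cells are given with the matrix genes.

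The 2 compounds differed widely. At an adjusted p under 0.05 in limma (Benjamini-Hochberg over all 12454 genes), 7453 genes were called different, which is 59.8% of those tested. Higher with Cardamonin were 3057 genes (24.5%), and higher with AEG 3482 were 4396 (35.3%). Most of these differences were small, with a median absolute log2 difference of 0.47 among called genes. A difference of at least 2-fold was reached by 909 called genes (7.3%), 318 of them higher with Cardamonin (2.55%) and 591 higher with AEG 3482 (4.75%). The 3 libraries of one compound lay wholly above the 3 of the other in 8226 genes (66.1%), with Cardamonin on top in 3444 (27.7%) and AEG 3482 on top in 4782 (38.4%). Some genes passed the filter through 1 compound alone and so could not overlap. They are among the 379 genes that reached 1 TPM in exactly 3 libraries. The counts here and in the gene lists below include them. Of the called genes, 41.0% were higher with Cardamonin, against 49.99% with median-ratio scaling and 51.3% after quantile normalization. The balance between the directions over all genes therefore depends on scaling. The median difference of all genes, -0.06, also changed sign, to 0.006 with median-ratio scaling and 0.014 after quantile normalization. No scaling moved it by more than 0.1.

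**Figure D1:**
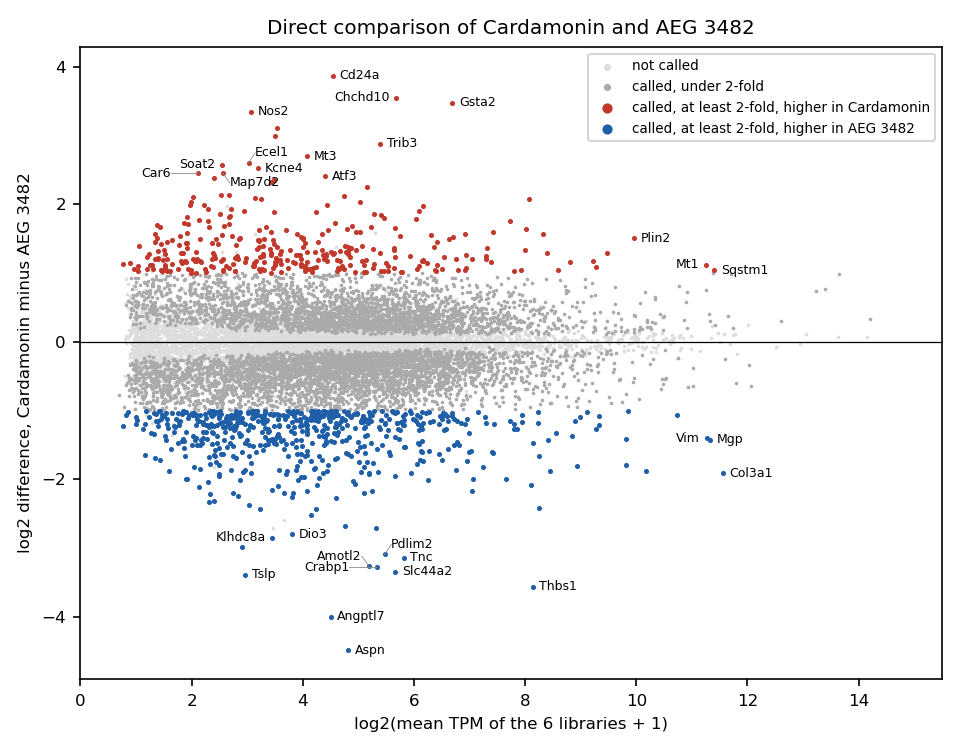
Each point is 1 of the 12454 genes tested, with the log2 of the mean TPM of the 6 libraries plus 1 on the horizontal axis and the log2 difference, Cardamonin minus AEG 3482, on the vertical axis. Red points are the 318 called genes at least 2-fold higher with Cardamonin, blue points the 591 at least 2-fold higher with AEG 3482, darker grey points other called genes and light grey points genes not called; the named genes reach 3.87 upward at Cd24a and -4.49 downward at Aspn.

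The largest differences in favour of Cardamonin lay in a surface protein, a mitochondrial protein, an inflammatory enzyme and detoxification and stress genes. In what follows, the 3 values for each compound are TPM in replicates 1, 2 and 3, and DMSO is given by its lowest, median and highest library. Cd24a, on chromosome 10 (GRCm38, 43578284 to 43584265), encodes a small glycoprotein anchored in the outer membrane and was at 40.4, 38.4 and 48.7 TPM with Cardamonin, 2.57, 1.699 and 1.696 with AEG 3482 and 1.72, 1.82 and 2.63 in DMSO (log2 difference 3.87, SE 0.13, adjusted p 3.8e-17). Chchd10, a protein of the mitochondrial intermembrane space on the same chromosome (75933130 to 75937747), was at 100.3, 85.2 and 95.3 TPM with Cardamonin, 7.14, 7.51 and 6.56 with AEG 3482 and 5.87, 7.17 and 13.6 in DMSO (log2 difference 3.55, SE 0.19, adjusted p 4.9e-14). For both genes the AEG 3482 libraries lay at or near the DMSO range and the Cardamonin libraries far above it. Gsta2, an alpha-class glutathione S-transferase, was at 174, 150.4 and 238 TPM with Cardamonin, 11.7, 14.1 and 22.96 with AEG 3482 and 0.249, 0.433 and 1.13 in DMSO (log2 difference 3.48, SE 0.29, adjusted p 1.4e-10). Its reads are uncertain, since 60.7% of its 31-base words also occur in transcripts of other genes. Nos2, the inducible nitric oxide synthase, was at 17.6, 19.9 and 5.93 TPM with Cardamonin, 0.348, 0.12003 and 0.692 with AEG 3482 and 43.96, 62.3 and 76.04 in DMSO (log2 difference 3.35, SE 0.26, adjusted p 3.5e-11). Both compounds lay below every DMSO library for Nos2, AEG 3482 lower than Cardamonin, and Cardamonin replicate 3 was well under the other 2.

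Among the other genes with the largest differences toward Cardamonin, Mt3, a metallothionein, was at 25.7, 21.5 and 38.2 TPM with Cardamonin, 4.16, 2.78 and 3.44 with AEG 3482 and 0.306, 1.07 and 2.66 in DMSO (log2 difference 2.70, SE 0.32, adjusted p 7.4e-08). Ecel1, a membrane metallopeptidase, was at 10.7, 13.3 and 15.003 TPM with Cardamonin, 1.13, 1.45 and 1.25 with AEG 3482 and 0.363, 0.5298 and 0.896 in DMSO (log2 difference 2.61, SE 0.15, adjusted p 2.7e-13). Soat2, which esterifies cholesterol, was at 8.67, 7.6000 and 10.6 TPM with Cardamonin, 0.871, 0.484 and 0.649 with AEG 3482 and 0.297, 0.451 and 0.60004 in DMSO (log2 difference 2.57, SE 0.11, adjusted p 8.2e-16). These 3 genes were below 3 TPM in DMSO and highest with Cardamonin in every replicate, without overlap. Car6, a secreted carbonic anhydrase, was at 6.52, 6.76 and 5.804 TPM with Cardamonin, 0.253, 0.363 and 0.419 with AEG 3482 and 0.0946, 0.108 and 0.287 in DMSO (log2 difference 2.45, SE 0.12, adjusted p 6.2e-15). Map7d2, which binds microtubules, was at 8.65, 8.24 and 10.1 TPM with Cardamonin, 0.926, 0.659 and 0.8997 with AEG 3482 and 0.0992, 0.199 and 0.626 in DMSO (log2 difference 2.45, SE 0.13, adjusted p 1.8e-14). Both were under 1 TPM in all AEG 3482 and DMSO libraries. Nos2, Soat2, Car6 and Map7d2, and Mcoln2, Abcb1a and Mylk below, were under 1 TPM in every AEG 3482 library. They passed the filter of 1 TPM in 3 libraries through Cardamonin alone, so they had to differ and their p-values are a description. Trib3 and Atf3, also among the 12 largest, are described with the ATF4 genes, and Kcne4 with the genes on opposite sides of DMSO.

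Toward AEG 3482, the largest differences were in secreted matrix proteins and in genes that respond to mechanical signals. Aspn, a small leucine-rich proteoglycan of the collagen matrix (chromosome 13, 49544443 to 49567565), was at 1.72, 1.25 and 1.197 TPM with Cardamonin, 59.6, 50.5 and 47.9 with AEG 3482 and 33.3, 39.3 and 50.4 in DMSO (log2 difference -4.49, SE 0.17, adjusted p 8.2e-17). Angptl7, a secreted angiopoietin-like protein (chromosome 4, 148495183 to 148500460), was at 1.91, 1.93 and 1.22 TPM with Cardamonin, 42.2, 42.99 and 39.5 with AEG 3482 and 20.2, 23.3 and 32.4 in DMSO (log2 difference -3.996, SE 0.20, adjusted p 1.0e-14). The Cardamonin libraries were under 2 TPM for both genes while every other library was above 20 TPM. Thbs1, the matricellular protein thrombospondin 1 (chromosome 2, 118111876 to 118127133), was at 45.9, 57.9 and 29.2 TPM with Cardamonin, 567, 488 and 495 with AEG 3482 and 657, 726 and 999 in DMSO (log2 difference -3.56, SE 0.17, adjusted p 5.2e-15). Tnc, the matrix protein tenascin C, was at 11.1, 19.96 and 4.62 TPM with Cardamonin, 105, 97.4 and 93.7 with AEG 3482 and 143, 154 and 167 in DMSO (log2 difference -3.14, SE 0.24, adjusted p 2.5e-11). Amotl2, an angiomotin family member and a target gene of YAP, was at 7.13, 6.996 and 3.95 TPM with Cardamonin, 67.6, 63.001 and 63.3 with AEG 3482 and 92.3, 109 and 144 in DMSO (log2 difference -3.26, SE 0.15, adjusted p 3.2e-15). In these 3 genes AEG 3482 was under every DMSO library, and Cardamonin was far under both, lowest in replicate 3.

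Tslp, an epithelial and stromal cytokine, was at 0.183, 0.569 and 0.326 TPM with Cardamonin, 13.4, 11.96 and 14.3 with AEG 3482 and 9.402, 11.97 and 13.6 in DMSO (log2 difference -3.39, SE 0.13, adjusted p 2.0e-16). Crabp1, which binds retinoic acid in the cytosol, was at 6.89, 8.41 and 4.77 TPM with Cardamonin, 69.3, 79.7 and 67.9 with AEG 3482 and 62.1, 84.2 and 98.7 in DMSO (log2 difference -3.28, SE 0.14, adjusted p 5.8e-16). Tslp was under 1 TPM in every Cardamonin library and passed the filter through AEG 3482 alone, so its p-value is likewise a description. For Tslp and Crabp1 the AEG 3482 libraries lay within or near the DMSO range and the Cardamonin libraries well below it. Dio3, the deiodinase that inactivates thyroid hormone, was at 2.96, 2.55 and 2.02 TPM with Cardamonin, 22.996, 22.4 and 24.6 with AEG 3482 and 43.1, 60.001 and 83.99 in DMSO (log2 difference -2.80, SE 0.17, adjusted p 5.9e-13). For Dio3 both compounds lay below DMSO, Cardamonin further below than AEG 3482. Klhdc8a, a kelch-domain protein, was at 2.07, 1.55 and 1.402 TPM with Cardamonin, 18.1, 18.5 and 18.01 with AEG 3482 and 13.6, 17.5 and 21.8 in DMSO (log2 difference -2.85, SE 0.14, adjusted p 5.2e-15). Its AEG 3482 libraries lay inside the DMSO range.

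**Figure D2:**
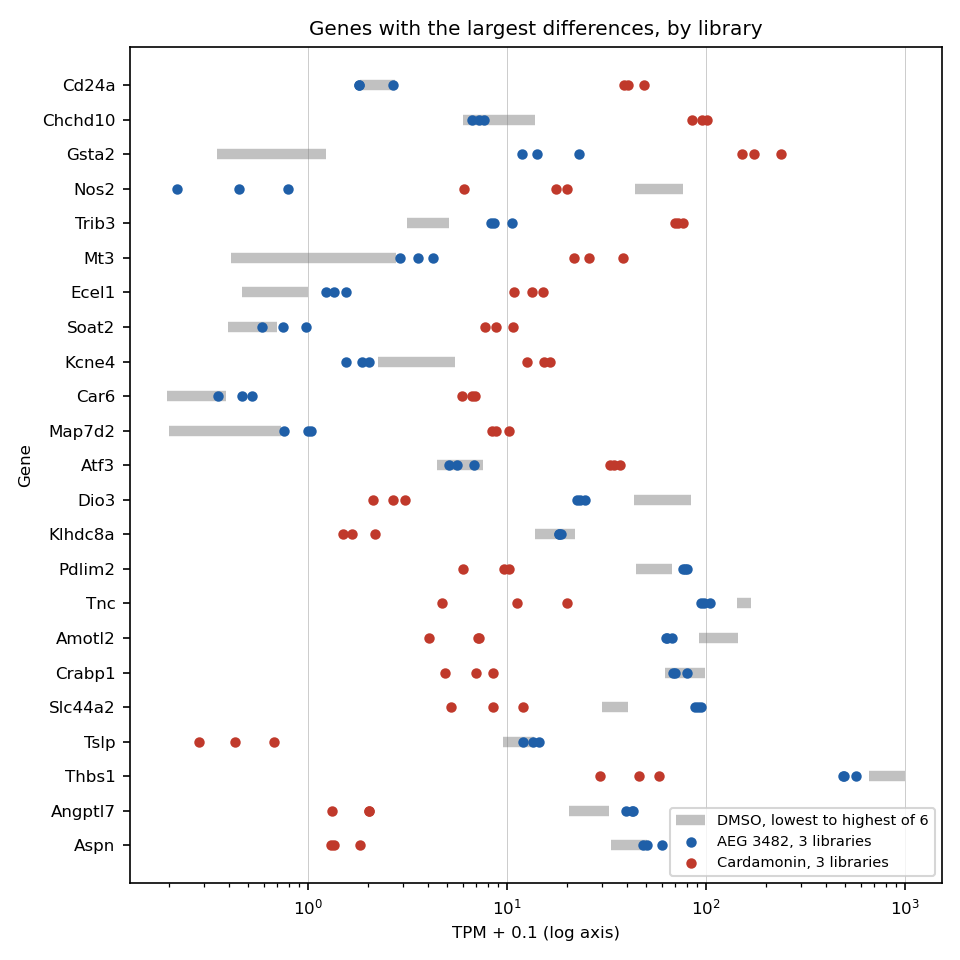
Genes with the largest differences, 12 higher with Cardamonin and 11 higher with AEG 3482, are shown with TPM plus 0.1 on a logarithmic horizontal axis; red points are the 3 Cardamonin libraries, blue points the 3 AEG 3482 libraries and grey bars run from the lowest to the highest of 6 DMSO libraries. Red and blue points do not overlap for any gene, and for Nos2 the DMSO bar lies above both.

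In some genes the 2 compounds stood on opposite sides of the control. All 6 DMSO libraries lay between the ranges of the 2 compounds in 218 genes higher with Cardamonin (1.75%) and in 429 higher with AEG 3482 (3.44%). Kcne4, a regulatory subunit of potassium channels, was at 15.2, 16.3 and 12.4 TPM with Cardamonin, 1.45, 1.76 and 1.93 with AEG 3482 and 2.14, 2.67 and 5.37 in DMSO (log2 difference 2.53, SE 0.20, adjusted p 6.9e-11). Mcoln2, a cation channel of endosomes and lysosomes, was at 7.74, 8.27 and 7.63 TPM with Cardamonin, 0.739, 0.807 and 0.585 with AEG 3482 and 5.81, 6.39 and 7.52 in DMSO (log2 difference 2.38, SE 0.12, adjusted p 7.6e-15). Both lay above the highest DMSO library with Cardamonin and under the lowest with AEG 3482. Shc2, a signalling adaptor, was at 53.2, 55.8 and 63.8 TPM with Cardamonin, 10.99, 10.96 and 11.98 with AEG 3482 and 20.9, 22.4 and 25.9 in DMSO (log2 difference 2.25, SE 0.082, adjusted p 7.6e-17). Mmp12, macrophage elastase, was at 65.2, 56.1 and 58.8 TPM with Cardamonin, 15.4, 16.2 and 15.9 with AEG 3482 and 22.5, 26.9 and 31.6 in DMSO (log2 difference 1.85, SE 0.12, adjusted p 9.0e-13). Zfp367, a zinc finger protein, was at 9.44, 6.66 and 11.5 TPM with Cardamonin, 1.68, 1.97 and 1.75 with AEG 3482 and 3.51, 4.08 and 4.81 in DMSO (log2 difference 1.84, SE 0.16, adjusted p 4.7e-10). In each of these the DMSO libraries filled the gap between the compounds without touching either.

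Of the genes with the opposite order, Slc44a2, a choline transporter-like membrane protein (chromosome 9, 21320698 to 21355028), was at 11.9, 8.33 and 5.14 TPM with Cardamonin, 87.8, 93.9 and 90.8 with AEG 3482 and 29.97, 36.6 and 40.3 in DMSO (log2 difference -3.34, SE 0.18, adjusted p 7.5e-14). Pdlim2, a PDZ and LIM domain protein of the actin cytoskeleton, was at 10.1, 9.49 and 5.903 TPM with Cardamonin, 79.7, 78.5 and 76.4 with AEG 3482 and 44.3, 54.4 and 67.6 in DMSO (log2 difference -3.09, SE 0.13, adjusted p 6.4e-16). Klf2, a transcription factor that responds to shear stress and to statins, was at 2.24, 2.198 and 1.401 TPM with Cardamonin, 15.2, 16.6 and 12.7 with AEG 3482 and 3.92, 4.73 and 5.94 in DMSO (log2 difference -2.43, SE 0.15, adjusted p 6.7e-13). Gamt, which makes creatine, was at 1.31, 1.66 and 1.44 TPM with Cardamonin, 8.66, 13.01 and 10.8 with AEG 3482 and 2.31, 3.52 and 5.11 in DMSO (log2 difference -2.25, SE 0.17, adjusted p 3.8e-11). AEG 3482 was above and Cardamonin below every DMSO library in all 4, and the same held for Angptl7 above.

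Abundant genes also differed by 2-fold or more. Sqstm1, the autophagy receptor p62 that binds KEAP1, was at 3601, 3498 and 3819 TPM with Cardamonin, 1681, 1783 and 1832 with AEG 3482 and 823, 898 and 987 in DMSO (log2 difference 1.04, SE 0.059, adjusted p 9.9e-14). Mt1, a metallothionein, was at 3149.9, 3179.5 and 3702 TPM with Cardamonin, 1456, 1536 and 1602 with AEG 3482 and 902, 1088 and 1476 in DMSO (log2 difference 1.12, SE 0.11, adjusted p 2.1e-09). Plin2, the coat protein of lipid droplets, was at 1451, 1386 and 1562 TPM with Cardamonin, 459, 537 and 552 with AEG 3482 and 141, 189 and 279 in DMSO (log2 difference 1.51, SE 0.15, adjusted p 5.1e-09). These 3 were higher with Cardamonin in every replicate, with AEG 3482 between Cardamonin and DMSO, except that the lowest AEG 3482 library for Mt1 lay inside the DMSO range. The most abundant genes at least 2-fold higher with AEG 3482 were Col3a1, given with the collagens, Mgp and Vim. Mgp, which keeps matrix from calcifying, was at 1478, 1442 and 1285 TPM with Cardamonin, 3826, 3758 and 3699.8 with AEG 3482 and 3146, 3786 and 4103 in DMSO (log2 difference -1.43, SE 0.087, adjusted p 4.7e-13). Vim, the intermediate filament protein vimentin, was at 1293, 1355 and 1398 TPM with Cardamonin, 3705, 3619 and 3398 with AEG 3482 and 2158, 2546 and 2877 in DMSO (log2 difference -1.40, SE 0.069, adjusted p 9.9e-15). For Mgp the AEG 3482 libraries lay inside the DMSO range, for Vim above it, and Cardamonin was lowest for both.

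The genes were then read as 37 lists of pathways and gene families. More than 50% of the tested members were called higher with Cardamonin in 12 lists and higher with AEG 3482 in 14, against 24.5% and 35.3% of all genes. By median log2 difference the lists ran from 0.73 for ATF4 genes and 0.64 for glutathione synthesis to -0.93 for collagens and -1.07 for interferon-stimulated genes, beside -0.06 for all genes tested. Every list named in this paragraph kept the sign of its median under all 15 alternative settings.

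**Figure D3:**
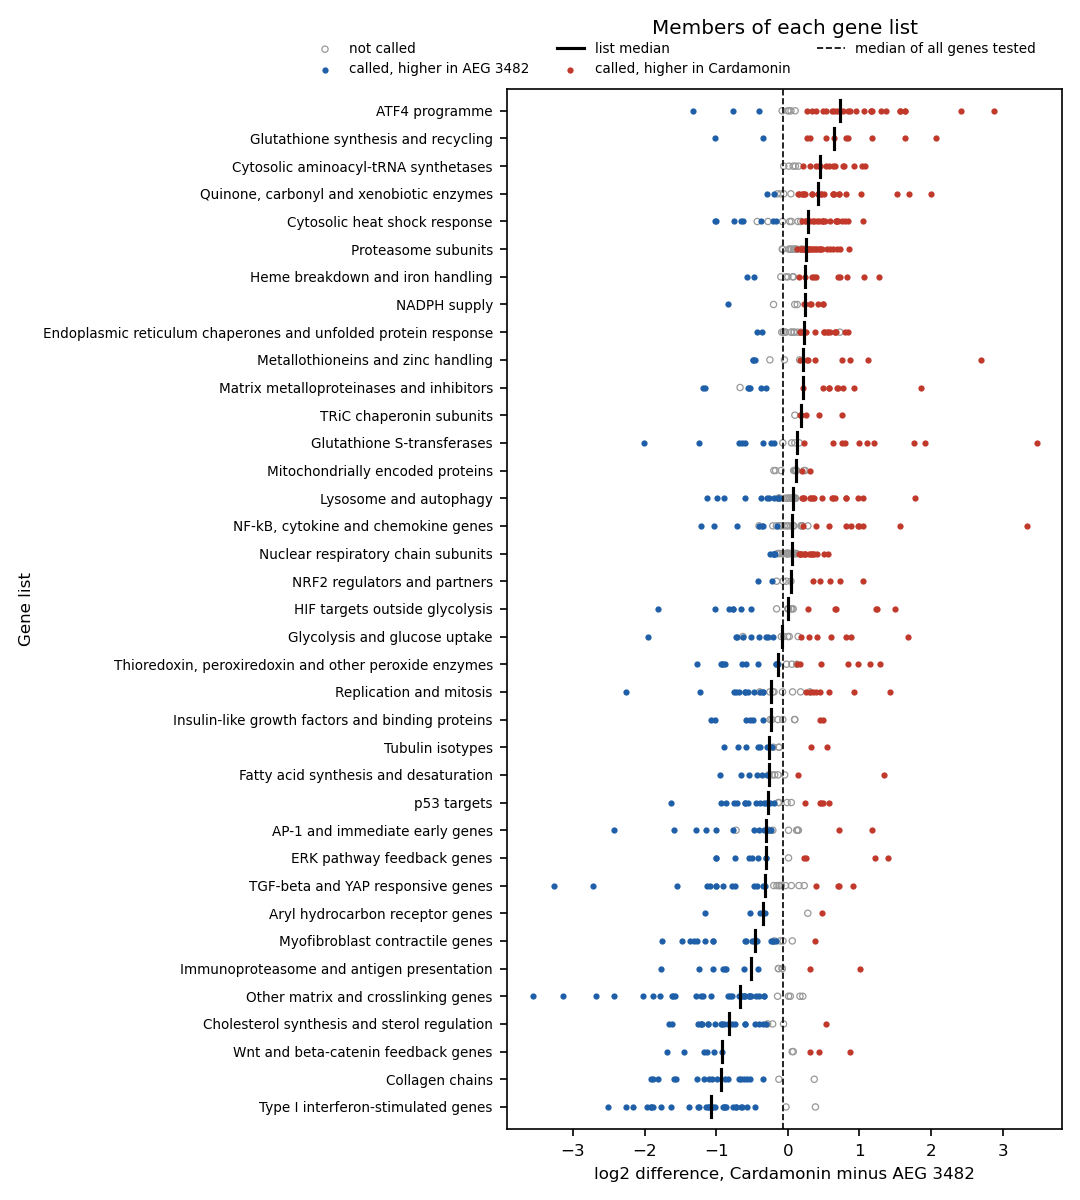
Each row is 1 of 37 gene lists, ordered by median, and each point is 1 tested member at its log2 difference, Cardamonin minus AEG 3482; red points were called higher with Cardamonin, blue points higher with AEG 3482 and open points were not called. Black bars are list medians and the dashed line is the median of all genes tested, -0.06; ATF4 genes and glutathione synthesis sit at the Cardamonin end, collagens and interferon-stimulated genes at the AEG 3482 end.

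Glutathione synthesis and recycling separated the compounds in favour of Cardamonin. Of 11 tested members, 9 were called higher with Cardamonin and 2 higher with AEG 3482, with a median log2 difference of 0.64. Slc7a11, the light chain of the cystine importer that feeds the pathway, was at 422, 428 and 455 TPM with Cardamonin, 96.02, 99.3 and 114 with AEG 3482 and 15.7, 18.4 and 25.7 in DMSO (log2 difference 2.07, SE 0.12, adjusted p 9.5e-14). Gclc, the catalytic subunit of the rate-limiting ligase, was at 784, 810.2 and 875 TPM with Cardamonin, 351, 348 and 399 with AEG 3482 and 46.3, 50.6 and 64.5 in DMSO (log2 difference 1.17, SE 0.079, adjusted p 3.9e-12). Its modifier subunit Gclm was at 1609.9, 1519 and 1622 TPM with Cardamonin, 988, 975 and 1077 with AEG 3482 and 92.3, 117 and 122 in DMSO (log2 difference 0.64, SE 0.084, adjusted p 3.1e-07). The AEG 3482 libraries were far above DMSO for all 3, and the Cardamonin libraries were higher again without overlap. Gss, which completes glutathione, was at 286, 274 and 339 TPM with Cardamonin, 191, 211 and 216 with AEG 3482 and 26.001, 30.4 and 34.5 in DMSO (log2 difference 0.53, SE 0.083, adjusted p 4.8e-06). Gsr, which reduces oxidised glutathione, was at 169.6, 165 and 187 TPM with Cardamonin, 143, 135 and 153 with AEG 3482 and 21.3, 23.3 and 27.99 in DMSO (log2 difference 0.27, SE 0.080, adjusted p 0.0045). Mean TPM with Cardamonin over that with AEG 3482 was 4.22 for Slc7a11, 2.25 for Gclc, 1.56 for Gclm, 1.45 for Gss and 1.21 for Gsr, all without overlap between the compounds.

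Chac1, which degrades glutathione, was at 40.4, 42.2 and 39.8 TPM with Cardamonin, 11.3, 14.5 and 11.8 with AEG 3482 and 2.35, 3.12 and 3.95 in DMSO (log2 difference 1.64, SE 0.14, adjusted p 5.0e-10). Chac2, a related enzyme, was at 13.3, 13.7 and 12.7 TPM with Cardamonin, 7.92, 7.29 and 6.18 with AEG 3482 and 7.03, 8.73 and 9.11 in DMSO (log2 difference 0.81, SE 0.091, adjusted p 3.0e-08). Chac1 was above DMSO with both compounds, whereas Chac2 was above it with Cardamonin alone. The 2 members higher with AEG 3482 were Glrx and Ggct. Glrx, a glutaredoxin, was at 107, 109 and 79.03 TPM with Cardamonin, 129.8, 116 and 128 with AEG 3482 and 232, 245 and 252 in DMSO (log2 difference -0.35, SE 0.075, adjusted p 2.9e-04). Ggct, a gamma-glutamylcyclotransferase, was at 2.89, 2.22 and 2.72 TPM with Cardamonin, 6.43, 5.92 and 6.53 with AEG 3482 and 2.09, 2.99 and 3.85 in DMSO (log2 difference -1.02, SE 0.17, adjusted p 9.2e-06). Glrx was below DMSO with both compounds, and Ggct was above every DMSO library with AEG 3482 and inside the DMSO range with Cardamonin.

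The glutathione S-transferases, which couple glutathione to electrophiles, went both ways. Of 22 tested members, 10 were called higher with Cardamonin (45.5%) and 8 higher with AEG 3482 (36.4%), with a median of 0.13. Over all genes the shares were 24.5% and 35.3%, so the AEG 3482 share was near that of all genes. Gsta3, an alpha-class enzyme, was at 317, 312 and 353 TPM with Cardamonin, 90.8, 93.1 and 105 with AEG 3482 and 13.3, 15.9 and 20.6 in DMSO (log2 difference 1.76, SE 0.11, adjusted p 1.3e-12). Gsta4, which clears lipid aldehydes, was at 3428, 3396 and 3877 TPM with Cardamonin, 1737, 1763 and 1866 with AEG 3482 and 121, 144 and 182 in DMSO (log2 difference 0.99, SE 0.088, adjusted p 5.1e-10). Gsto1, of the omega class, was at 183, 169 and 193 TPM with Cardamonin, 78.6, 78.6 and 78.2 with AEG 3482 and 58.3, 61.05 and 67.5 in DMSO (log2 difference 1.201, SE 0.049, adjusted p 3.7e-16). Alpha-class Gsta1 and Gsta2 had the same order as these, with shared sequence in 92.9% and 60.7% of their 31-base words. Mgst1, a membrane enzyme, was at 682, 662 and 709.7 TPM with Cardamonin, 407, 391 and 386 with AEG 3482 and 368, 404 and 427 in DMSO (log2 difference 0.79, SE 0.059, adjusted p 2.1e-11). In the opposite direction, Mgst3, of the same membrane family, was at 5.39, 4.95 and 4.75 TPM with Cardamonin, 22.7, 24.99 and 22.2 with AEG 3482 and 24.3, 25.3 and 27.3 in DMSO (log2 difference -2.01, SE 0.075, adjusted p 7.8e-17). Gstt1, of the theta class, was at 16.5, 16.98 and 8.09 TPM with Cardamonin, 32.8, 35.5 and 29.6 with AEG 3482 and 80.2, 86.9 and 99.2 in DMSO (log2 difference -1.24, SE 0.15, adjusted p 6.0e-08). Gstk1, the mitochondrial kappa-class enzyme, was at 25.7, 21.8 and 25.4 TPM with Cardamonin, 40.8, 37.7 and 39.8 with AEG 3482 and 24.6, 27.04 and 34.1 in DMSO (log2 difference -0.68, SE 0.082, adjusted p 8.9e-08). Mgst3 and Gstt1 were lower with Cardamonin than in any DMSO library, so the 2 microsomal enzymes Mgst1 and Mgst3 stood in opposite order. The mu-class members Gstm2 (log2 difference -0.35, SE 0.062, adjusted p 2.9e-05) and Gstm5 (log2 difference -0.59, SE 0.064, adjusted p 1.7e-08) were higher with AEG 3482 as well, and 4 transferases did not pass the test.

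**Figure D4:**
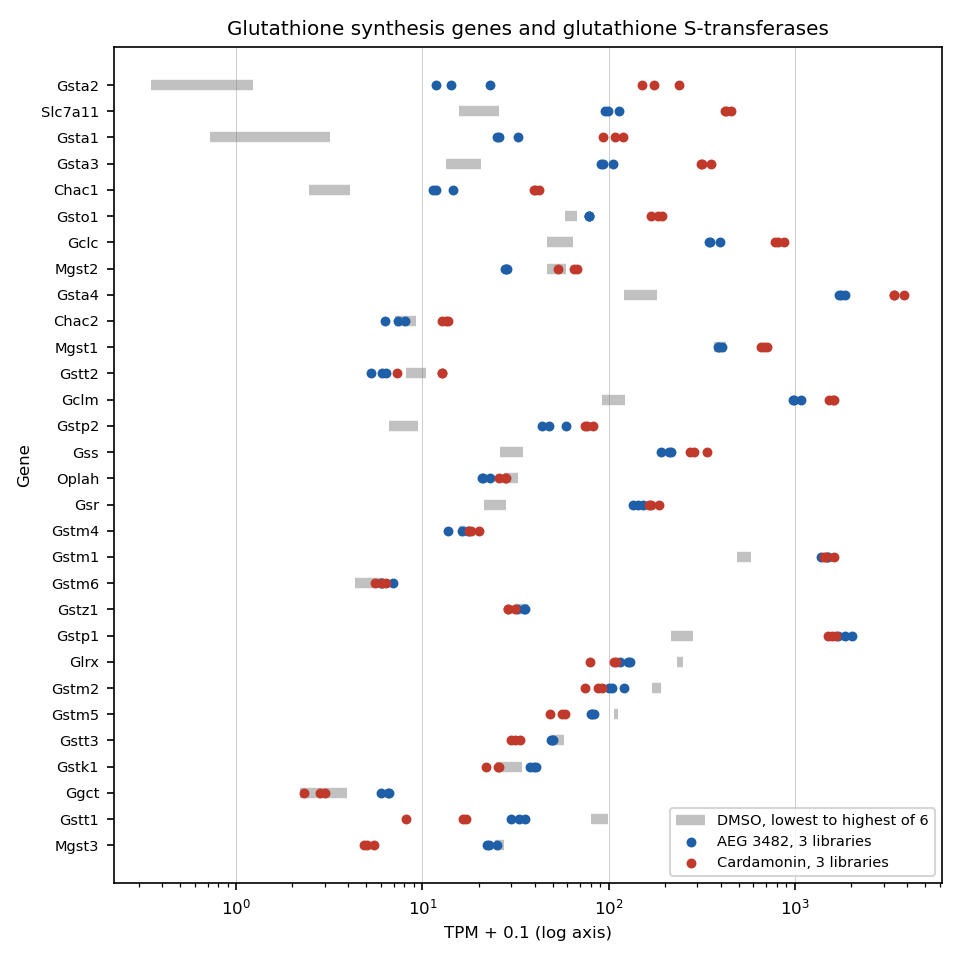
The 30 tested genes of glutathione synthesis and of the glutathione S-transferases whose mean in the higher compound reached 5 TPM are shown with TPM plus 0.1 on a logarithmic horizontal axis; red points are Cardamonin libraries, blue points AEG 3482 libraries and grey bars the range of 6 DMSO libraries. Gsta2 and Slc7a11 are at the top with red far to the right of blue, and Mgst3 at the bottom with the order reversed.

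Enzymes that supply NADPH and reduce quinones and carbonyls were mostly higher with Cardamonin. In the quinone, carbonyl and xenobiotic list 23 of 29 tested members were called higher with Cardamonin and 2 higher with AEG 3482 (median 0.42), and without Cardamonin replicate 3 the counts were 19 and 2. Nqo1, the quinone reductase used as a marker of NRF2 activity, was at 848, 815 and 959 TPM with Cardamonin, 603, 635 and 708 with AEG 3482 and 79.4, 88.9 and 108 in DMSO (log2 difference 0.43, SE 0.080, adjusted p 5.4e-05). Abcb1a, the drug efflux pump P-glycoprotein, was at 5.49, 4.82 and 5.44 TPM with Cardamonin, 0.471, 0.5802 and 0.653 with AEG 3482 and 0.279, 0.448 and 0.587 in DMSO (log2 difference 1.99, SE 0.11, adjusted p 8.8e-14). Akr1c14, an aldo-keto reductase, was at 137, 148 and 178 TPM with Cardamonin, 54.1, 53.3 and 51.4 with AEG 3482 and 23.1, 34.4 and 38.7 in DMSO (log2 difference 1.52, SE 0.13, adjusted p 3.2e-10). Abcc4, another efflux pump, was at 119, 120.02 and 122 TPM with Cardamonin, 62.8, 66.9 and 75.97 with AEG 3482 and 9.57, 11.9 and 13.8 in DMSO (log2 difference 0.81, SE 0.085, adjusted p 9.8e-09). Nqo1, Akr1c14 and Abcc4 were above DMSO with both compounds, 2 of 3 AEG 3482 libraries lay inside the DMSO range for Abcb1a, and none of the 4 genes overlapped between compounds. Ephx1, the microsomal epoxide hydrolase, was at 872, 809 and 928 TPM with Cardamonin, 1031, 1093 and 1078 with AEG 3482 and 224, 248 and 269 in DMSO (log2 difference -0.30, SE 0.069, adjusted p 6.3e-04). It was 1 of the 2 genes with the reverse order, the other being Aldh7a1 (log2 difference -0.19, SE 0.051, adjusted p 0.0022).

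For NADPH supply, 7 of 11 tested members were called higher with Cardamonin and 1 higher with AEG 3482 (median 0.24). Taldo1, transaldolase of the pentose phosphate route, was at 669, 642 and 758 TPM with Cardamonin, 464, 524 and 555 with AEG 3482 and 75.9, 85.1 and 93.4 in DMSO (log2 difference 0.42, SE 0.071, adjusted p 1.4e-05). Me1, malic enzyme, was at 172, 167 and 173 TPM with Cardamonin, 128, 116 and 120.03 with AEG 3482 and 55.9, 59.7 and 68.9 in DMSO (log2 difference 0.49, SE 0.059, adjusted p 9.7e-08). Both were far above DMSO with either compound and higher with Cardamonin without overlap. G6pdx and Pgd, the 2 dehydrogenases that make NADPH in that route, did not pass the test (log2 difference 0.13, SE 0.068, adjusted p 0.096 for the first and log2 difference 0.10, SE 0.046, adjusted p 0.072 for the second). With median-ratio scaling their adjusted p was 0.0056 for G6pdx and 0.0036 for Pgd, higher with Cardamonin. After quantile normalization it was 0.036 and 0.015, and when rescaled without the 20 most abundant genes 0.024 and 0.0081. Without Cardamonin replicate 2 it was 0.037 and 0.041, and without AEG 3482 replicate 3 Pgd had an adjusted p of 0.042. Rpia, the ribose phosphate isomerase, was the exception, at 8.301, 8.49 and 9.26 TPM with Cardamonin, 16.8, 17.6 and 14.6 with AEG 3482 and 10.4, 11.7 and 13.7 in DMSO (log2 difference -0.84, SE 0.085, adjusted p 5.8e-09). Its Cardamonin libraries were below every DMSO library and its AEG 3482 libraries above.

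Thioredoxin and peroxide enzymes went both ways, with 7 of 21 tested members called higher with Cardamonin (33.3%) and 11 higher with AEG 3482 (52.4%). Over all genes the shares were 24.5% and 35.3%. The list median was -0.14, and median-ratio scaling gave 8 and 7 members. Prdx1, an abundant cytosolic peroxiredoxin, was at 16957, 16710.3 and 17377 TPM with Cardamonin, 8277, 8305 and 9296 with AEG 3482 and 1843, 2096 and 2632 in DMSO (log2 difference 0.98, SE 0.096, adjusted p 2.7e-09). Prdx6, which reduces phospholipid peroxides, was at 1029.7, 963 and 1022 TPM with Cardamonin, 387, 419 and 429 with AEG 3482 and 152, 167 and 180.1 in DMSO (log2 difference 1.29, SE 0.054, adjusted p 5.7e-16). Sod2, the mitochondrial superoxide dismutase, was at 108, 115 and 85.5 TPM with Cardamonin, 46.5, 45.2 and 45.1 with AEG 3482 and 200.1, 201 and 214 in DMSO (log2 difference 1.15, SE 0.062, adjusted p 5.7e-14). Prdx1 and Prdx6 were above DMSO with both compounds, and Sod2 was below it with both. Several secreted or endoplasmic reticulum enzymes had the reverse order. Gpx7, an endoplasmic reticulum peroxidase, was at 43.5, 45.7 and 33.001 TPM with Cardamonin, 86.9, 115 and 94.7 with AEG 3482 and 82.03, 92.03 and 102 in DMSO (log2 difference -1.26, SE 0.12, adjusted p 8.8e-10). Gpx3, the plasma peroxidase, was at 321, 389.6 and 203 TPM with Cardamonin, 624.9, 551 and 522 with AEG 3482 and 1403, 1438 and 1494 in DMSO (log2 difference -0.94, SE 0.12, adjusted p 4.7e-07). Sod3, the extracellular dismutase, was at 81.6, 91.1 and 63.9 TPM with Cardamonin, 155, 149 and 141 with AEG 3482 and 166, 193 and 206 in DMSO (log2 difference -0.92, SE 0.096, adjusted p 9.8e-09). Cardamonin lay below every DMSO library for all 3, and AEG 3482 did so for Gpx3 and Sod3. The NRF2 targets Srxn1 (log2 difference 0.12, SE 0.078, adjusted p 0.17) and Txnrd1 (log2 difference 0.06, SE 0.086, adjusted p 0.59) did not pass the test, which does not show that their levels were equal; the adjusted p of Srxn1 was 0.037 with median-ratio scaling.

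In heme breakdown and iron handling, 10 of 17 tested members were called higher with Cardamonin and 2 higher with AEG 3482 (median 0.24). Hmox1, heme oxygenase 1, was at 11880.5, 11704 and 12634 TPM with Cardamonin, 7124, 7469 and 7154 with AEG 3482 and 434, 524 and 617 in DMSO (log2 difference 0.74, SE 0.096, adjusted p 3.6e-07). It took 1.26% to 1.36% of the listed TPM with Cardamonin and 0.767% to 0.805% with AEG 3482, against 0.046% to 0.066% in DMSO. Slc11a2, the iron importer DMT1, was at 119.8, 119 and 127 TPM with Cardamonin, 56.97, 62.6 and 54.9 with AEG 3482 and 98.3, 108 and 110.4 in DMSO (log2 difference 1.06, SE 0.099, adjusted p 1.3e-09). Flvcr1, which exports heme, was at 33.7, 31.4 and 34.8 TPM with Cardamonin, 19.6, 19.4 and 20.9 with AEG 3482 and 7.61, 8.599 and 9.196 in DMSO (log2 difference 0.71, SE 0.082, adjusted p 4.6e-08). Tfrc, the transferrin receptor, was at 17.3, 16.5 and 16.8 TPM with Cardamonin, 9.31, 9.14 and 8.87 with AEG 3482 and 5.45, 6.97 and 8.96 in DMSO (log2 difference 0.82, SE 0.12, adjusted p 2.5e-06). AEG 3482 was below DMSO for Slc11a2 and above it for Flvcr1, and Cardamonin was above DMSO for all 3. Hmox2, the constitutive heme oxygenase, had the reverse order and was at 55.05, 54.4 and 50.6 TPM with Cardamonin, 81.4, 81.9 and 76.6 with AEG 3482 and 77.4, 84.5 and 88.1 in DMSO (log2 difference -0.58, SE 0.056, adjusted p 2.5e-09). Its Cardamonin libraries were below every DMSO library. The ferritin heavy chain Fth1 did not pass the test (log2 difference 0.07, SE 0.052, adjusted p 0.28), and its value changed with the setting: 0.12 without Cardamonin replicate 3 (adjusted p 0.045) and -0.47 after quantile normalization (adjusted p 0.00055).

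Among 11 tested genes of proteins that set NRF2 activity, 5 were called higher with Cardamonin (45.5%) and 2 higher with AEG 3482 (18.2%). Over all genes the shares were 24.5% and 35.3%. The list median was 0.04, and Sqstm1 had the largest difference. Nfe2l2, which encodes NRF2, did not pass the test, at 184, 189 and 188 TPM with Cardamonin and 183, 175 and 186 TPM with AEG 3482 (log2 difference 0.04, SE 0.045, adjusted p 0.42); with median-ratio scaling its adjusted p was 0.019, higher with Cardamonin. Keap1 was at 62.2, 60.6 and 66.9 TPM and 61.7, 69.2 and 67.8 TPM (log2 difference -0.07, SE 0.072, adjusted p 0.45), with overlapping libraries. Maff, a small MAF partner, was at 34.3, 33.3 and 38.5 TPM with Cardamonin, 19.9, 21.5 and 21.4 with AEG 3482 and 19.8, 21.3 and 23.01 in DMSO (log2 difference 0.73, SE 0.062, adjusted p 2.3e-10). Bach1, a repressor that competes with NRF2 at heme and iron genes, was at 42.7, 45.99 and 43.7 TPM with Cardamonin, 32.7, 31.9 and 31.6 with AEG 3482 and 26.5, 26.9 and 33.03 in DMSO (log2 difference 0.45, SE 0.068, adjusted p 3.6e-06). Both were higher with Cardamonin without overlap. Cul3 (log2 difference -0.22, SE 0.066, adjusted p 0.0056) and Btrc, an adaptor of a KEAP1-independent ligase (log2 difference -0.41, SE 0.065, adjusted p 6.0e-06), were higher with AEG 3482, and the adjusted p of Cul3 was 0.088 with median-ratio scaling. Genes of the aryl hydrocarbon receptor, a sensor of planar compounds, gave 1 of 6 tested higher with Cardamonin and 4 higher with AEG 3482 (median -0.35). The receptor's repressor Ahrr was at 1.65, 2.06 and 1.38 TPM with Cardamonin, 6.41, 3.92 and 4.88 with AEG 3482 and 6.55, 7.61 and 9.03 in DMSO (log2 difference -1.16, SE 0.13, adjusted p 3.9e-08). Its target Cyp1b1 was at 18.04, 16.9 and 10.7 TPM with Cardamonin, 12.7, 10.9 and 12.6 TPM with AEG 3482 and 64.4 to 109 TPM in DMSO, far below DMSO with both compounds, and it did not pass the test (log2 difference 0.28, SE 0.15, adjusted p 0.1). Without Cardamonin replicate 3 its difference was 0.50 (adjusted p 0.0024). With median-ratio scaling it was 0.35 (adjusted p 0.035), and after quantile normalization 0.36 (adjusted p 0.028).

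The ATF4 genes were the list with the highest median. Of 32 tested members, 24 were called higher with Cardamonin and 3 higher with AEG 3482 (median 0.73), and 12 were at least 2-fold higher with Cardamonin, 1 at least 2-fold higher with AEG 3482. Trib3, a pseudokinase that restrains the response (chromosome 2, 152337422 to 152344032), was at 72.2, 69.9 and 76.5 TPM with Cardamonin, 8.52, 8.196 and 10.5 with AEG 3482 and 3.05, 4.68 and 4.97 in DMSO (log2 difference 2.88, SE 0.11, adjusted p 1.2e-16). Atf3, a transcription factor induced by ATF4 (chromosome 1, 191170296 to 191218039), was at 34.2, 32.7 and 36.9 TPM with Cardamonin, 5.01, 6.67 and 5.46 with AEG 3482 and 4.32, 5.08 and 7.48 in DMSO (log2 difference 2.41, SE 0.13, adjusted p 2.4e-14). Both were far higher with Cardamonin, and for Atf3 the AEG 3482 libraries lay inside the DMSO range. Atf4 itself was at 282, 281 and 300.4 TPM with Cardamonin, 185, 190.04 and 189 with AEG 3482 and 125, 134 and 144 in DMSO (log2 difference 0.61, SE 0.050, adjusted p 1.0e-10). Ddit3, the factor CHOP, was at 222, 199 and 268 TPM with Cardamonin, 95.6, 103 and 105 with AEG 3482 and 78.5, 82.5 and 97.04 in DMSO (log2 difference 1.17, SE 0.082, adjusted p 7.6e-12). Atf5, a related factor, was at 460.1, 448 and 522 TPM with Cardamonin, 186, 198 and 194 with AEG 3482 and 78.9, 82.8 and 86.6 in DMSO (log2 difference 1.30, SE 0.058, adjusted p 1.6e-15). All 3 factors were higher with Cardamonin in every replicate, by 1.53, 2.27 and 2.47 times.

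To show the sequence these genes carry at their starts, windows from 250 bases before to 50 bases after each annotated start (RefSeq, GRCm38.p6) were searched on both strands for TGATGNAA, the core of the response element bound by ATF4 with a CCAAT/enhancer partner. It occurred in 250 of the 9336 tested genes with a window (2.68%), in 8 of 27 ATF4 genes (29.6%), in 5 of 12 cytosolic tRNA synthetases (41.7%) and in 2 of 8 glutathione synthesis genes (25%). The stretches shown belong to the 5 called ATF4 or glutathione genes that have a match and the largest differences. Genes of 1 chromosome were left out of this choice. The stretches run 5′ to 3′ on the gene's strand, with matches on either strand in capitals. They are Trib3 at chr2:152344028-152344057, just after its RefSeq start, Atf3 at chr1:191183400-191183479, Slc7a11 at chr3:50443617-50443696, Chac1 at chr2:119351013-119351092 and Pycr1 at chr11:120643808-120643887.
Trib3: ttagctcaggtTTACATCAgccgggcgggg
Atf3: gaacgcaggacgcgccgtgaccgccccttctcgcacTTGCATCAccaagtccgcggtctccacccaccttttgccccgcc
Slc7a11: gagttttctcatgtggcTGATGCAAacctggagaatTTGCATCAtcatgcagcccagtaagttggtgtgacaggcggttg
Chac1: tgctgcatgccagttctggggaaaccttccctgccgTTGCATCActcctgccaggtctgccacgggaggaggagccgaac
Pycr1: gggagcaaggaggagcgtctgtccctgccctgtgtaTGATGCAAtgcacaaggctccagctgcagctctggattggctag
Slc7a11 held 2 matches on opposite strands within the stretch, and the other 4 genes held 1 each. The RefSeq start of Trib3 lies upstream of the gene interval given earlier, so by that interval its match lies before the gene. Pycr1, which makes proline, carried a match yet was higher with AEG 3482, at 8.297, 8.27 and 5.15 TPM with Cardamonin, 19.6, 19.2 and 19.1 with AEG 3482 and 13.9, 17.5 and 19.3 in DMSO (log2 difference -1.33, SE 0.14, adjusted p 1.3e-08). A match describes the letters in the window and is not a measured binding site. The shares were not tested, and the lists were chosen with earlier results of these data known.

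Among ATF4 genes with metabolic roles, Asns, which makes asparagine, was at 98.4, 88.3 and 104 TPM with Cardamonin, 38.6, 38.8 and 50.5 with AEG 3482 and 26.5, 28.3 and 32.8 in DMSO (log2 difference 1.17, SE 0.094, adjusted p 7.6e-11). Phgdh, the first enzyme of serine synthesis, was at 27.1, 27.4 and 33.2 TPM with Cardamonin, 9.68, 11.1 and 7.09 with AEG 3482 and 11.7, 12.7 and 13.9 in DMSO (log2 difference 1.57, SE 0.11, adjusted p 9.2e-12), with 56.3% of its 31-base words shared. Mthfd2, a mitochondrial folate enzyme, was at 38.9, 38.9 and 44.3 TPM with Cardamonin, 13.5, 19.3 and 13.3 with AEG 3482 and 4.57, 5.95 and 10.1 in DMSO (log2 difference 1.37, SE 0.17, adjusted p 1.1e-07). Cth, which makes cysteine from cystathionine, was at 12.2, 13.97 and 12.7 TPM with Cardamonin, 3.45, 2.92 and 4.19 with AEG 3482 and 7.89, 8.301 and 10.3 in DMSO (log2 difference 1.63, SE 0.12, adjusted p 1.5e-11). All 4 were higher with Cardamonin without overlap, and Cth and Phgdh were below the DMSO range with AEG 3482 in all 3 replicates and above it with Cardamonin. Slc3a2, the shared heavy chain of amino acid exchangers, was at 608, 599 and 644 TPM with Cardamonin, 270.2, 292 and 263 with AEG 3482 and 115, 129.8 and 134 in DMSO (log2 difference 1.16, SE 0.063, adjusted p 5.2e-14). Gdf15, a secreted stress hormone, was at 186, 171 and 182 TPM with Cardamonin, 55.7, 65.02 and 59.1 with AEG 3482 and 3.87, 5.098 and 5.92 in DMSO (log2 difference 1.57, SE 0.10, adjusted p 2.9e-12). Both lay above DMSO with either compound and higher with Cardamonin. The 3 members with the reverse order were Pycr1, Jdp2 (log2 difference -0.41, SE 0.077, adjusted p 6.2e-05) and Ddit4, an inhibitor of mTORC1, which was at 61.2, 76.2 and 54.3 TPM with Cardamonin, 107, 116 and 104 with AEG 3482 and 45.9, 52.6 and 69.9 in DMSO (log2 difference -0.77, SE 0.14, adjusted p 2.7e-05). The other 5, among them the stress sensor Sesn2 (log2 difference -0.08, SE 0.077, adjusted p 0.39), did not pass the test.

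Cytosolic aminoacyl-tRNA synthetases, which load amino acids onto tRNA, were mostly higher with Cardamonin, with 15 of 20 tested called higher with Cardamonin and 0 higher with AEG 3482 in limma (median 0.44). At an unadjusted p under 0.05 the counts were also 15 and 0. Aars, for alanine, was at 161, 152 and 180.1 TPM with Cardamonin, 75.4, 74.5 and 82.5 with AEG 3482 and 34.1, 40.8 and 44.3 in DMSO (log2 difference 1.08, SE 0.089, adjusted p 1.5e-10). Lars, for leucine, was at 57.8, 56.9 and 60.6 TPM with Cardamonin, 28.2, 27.9 and 27.8 with AEG 3482 and 29.7, 32.1 and 32.8 in DMSO (log2 difference 1.04, SE 0.042, adjusted p 2.5e-16). Nars, for asparagine, was at 207, 197 and 225 TPM with Cardamonin, 119, 122 and 121 with AEG 3482 and 83.1, 87.4 and 89.9 in DMSO (log2 difference 0.79, SE 0.041, adjusted p 2.9e-14). Each was higher with Cardamonin in every replicate, and for Lars the AEG 3482 libraries lay below the DMSO range. The other 5 synthetases did not pass the test.

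Chaperones and the proteasome were also higher with Cardamonin, with exceptions. In the cytosolic heat shock list 21 of 36 tested members were called higher with Cardamonin and 8 higher with AEG 3482 (median 0.28). At 2-fold or more the order was reversed, with 1 higher with Cardamonin and 2 higher with AEG 3482. The members described in this paragraph all differed by less than 2-fold. Hsph1, a nucleotide exchange factor of HSP70, was at 100.02, 101 and 109 TPM with Cardamonin, 70.4, 64.6 and 57.9 with AEG 3482 and 20.3, 22.9 and 26.9 in DMSO (log2 difference 0.68, SE 0.10, adjusted p 2.6e-06). Hsp90aa1, the inducible HSP90, was at 715, 659 and 768 TPM with Cardamonin, 467, 451 and 427 with AEG 3482 and 183, 210.4 and 236 in DMSO (log2 difference 0.67, SE 0.077, adjusted p 4.2e-08). Hspb8, a small heat shock protein, was at 295, 273 and 309 TPM with Cardamonin, 176, 187 and 175 with AEG 3482 and 78.9, 81.99 and 86.04 in DMSO (log2 difference 0.70, SE 0.043, adjusted p 6.3e-13). These were above DMSO with both compounds and highest with Cardamonin. In contrast Hspa1b, the inducible HSP70, was at 122, 108 and 117 TPM with Cardamonin, 173, 230.3 and 185 with AEG 3482 and 16.6, 21.2 and 28.7 in DMSO (log2 difference -0.75, SE 0.15, adjusted p 1.1e-04). Hspa4l, an HSP110 relative, was at 23.3, 21.5 and 24.8 TPM with Cardamonin, 33.3, 38.7 and 37.05 with AEG 3482 and 3.79, 4.24 and 6.11 in DMSO (log2 difference -0.63, SE 0.12, adjusted p 8.2e-05). Dnajb1, the main HSP40 partner, was at 54.5, 50.9 and 49.9 TPM with Cardamonin, 59.9, 63.3 and 57.1 with AEG 3482 and 24.2, 25.7 and 27.4 in DMSO (log2 difference -0.21, SE 0.056, adjusted p 0.0022). These 3 were above DMSO with both compounds but higher with AEG 3482, so the list did not follow 1 order; Hspa1b shares 68.1% of its 31-base words with other genes. Bag3 (log2 difference 0.03, SE 0.066, adjusted p 0.75) did not pass the test.

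Windows at gene starts were searched in the same way for 3 alternating units of the heat shock element bound by HSF1, which are GAA, TTC and GAA with any 2 bases between neighbours. It occurred in 52 of 9336 genes (0.557%) and in 5 of 30 heat shock genes (16.7%). The list gathers genes of this response, so its share is a description that was not tested. Here too a match is not a measured binding site. The stretches shown, with matches in capitals, belong to the matching genes with the largest differences, chosen in the same way. Hspd1 and Hspe1 encode the mitochondrial chaperonin pair and start from the same stretch in opposite directions (chr1:55088023-55088107 and chr1:55088028-55088112). Chordc1, an HSP90 partner, is also shown (chr9:18292260-18292288).
Hspd1: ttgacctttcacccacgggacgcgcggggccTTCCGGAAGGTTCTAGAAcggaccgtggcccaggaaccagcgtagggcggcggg
Hspe1: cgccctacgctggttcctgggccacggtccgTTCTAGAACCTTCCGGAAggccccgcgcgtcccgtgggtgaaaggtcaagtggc
Chordc1: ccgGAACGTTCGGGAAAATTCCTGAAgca
The Hspd1 and Hspe1 lines show nearly the same DNA read from either strand. Hspd1 was at 240.4, 231 and 254 TPM with Cardamonin, 132, 129 and 141 with AEG 3482 and 111, 114 and 128 in DMSO (log2 difference 0.84, SE 0.053, adjusted p 9.0e-13). Hspe1 was at 278, 269 and 307 TPM with Cardamonin, 160.3, 165 and 166 with AEG 3482 and 185, 192 and 204 in DMSO (log2 difference 0.79, SE 0.071, adjusted p 5.9e-10). Chordc1 was at 26.4, 25.6 and 26.3 TPM with Cardamonin, 16.3, 14.6 and 14.4 with AEG 3482 and 11.6, 11.995 and 12.9 in DMSO (log2 difference 0.75, SE 0.062, adjusted p 1.3e-10). Cardamonin was highest for all 3, and AEG 3482 lay below the DMSO range for Hspe1 and above it for Hspd1 and Chordc1.

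The proteasome gave 25 of 36 tested members called higher with Cardamonin and 0 higher with AEG 3482 in limma (median 0.26), with 26 and 0 at an unadjusted p under 0.05. Median-ratio and quantile scaling each gave 30 and 0. Psmb3, a core subunit, was at 364, 332 and 378 TPM with Cardamonin, 188, 203 and 202 with AEG 3482 and 144, 153 and 183 in DMSO (log2 difference 0.85, SE 0.066, adjusted p 5.2e-11). Psmd14, the deubiquitinase of the lid, was at 201, 197 and 207 TPM with Cardamonin, 125, 123 and 117 with AEG 3482 and 64.9, 70.8 and 73.5 in DMSO (log2 difference 0.73, SE 0.063, adjusted p 3.5e-10). Psmd2, a base subunit, was at 321, 311 and 345 TPM with Cardamonin, 212, 214 and 221 with AEG 3482 and 157, 162 and 173 in DMSO (log2 difference 0.59, SE 0.040, adjusted p 3.7e-12). DMSO was lowest, AEG 3482 higher and Cardamonin highest in all 3, without overlap. Nfe2l1, a transcription factor of proteasome genes, was at 333, 343 and 349.99 TPM with Cardamonin, 214, 244 and 221 with AEG 3482 and 171, 188 and 203 in DMSO (log2 difference 0.59, SE 0.078, adjusted p 3.8e-07). It had the same order. The TRiC chaperonin, which folds actin and tubulin, had 6 of 7 tested subunits called higher with Cardamonin and 0 higher with AEG 3482 in limma (median 0.19), with the same 6 and 0 at an unadjusted p under 0.05. Cct3 was its largest difference, at 224, 211 and 234 TPM with Cardamonin, 132, 133 and 131 with AEG 3482 and 122, 129.6 and 153 in DMSO (log2 difference 0.75, SE 0.065, adjusted p 3.3e-10).

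Endoplasmic reticulum chaperones and unfolded protein response genes gave 17 of 30 tested higher with Cardamonin and 2 higher with AEG 3482 (median 0.22). Hspa5, the main chaperone BiP, was at 1043, 1017 and 929 TPM with Cardamonin, 578, 601 and 538 with AEG 3482 and 655, 678 and 724 in DMSO (log2 difference 0.80, SE 0.053, adjusted p 2.4e-12). Dnajb9, a partner of BiP, was at 97.7, 100.3 and 90.3 TPM with Cardamonin, 55.02, 51.7 and 53.5 with AEG 3482 and 45.98, 48.5 and 52.2 in DMSO (log2 difference 0.83, SE 0.059, adjusted p 8.2e-12). Hyou1, an endoplasmic reticulum exchange factor, was at 117, 116 and 110.1 TPM with Cardamonin, 75.4, 79.3 and 76.1 with AEG 3482 and 53.2, 56.5 and 57.3 in DMSO (log2 difference 0.56, SE 0.068, adjusted p 9.0e-08). Cardamonin was above every DMSO library for all 3, and AEG 3482 was below DMSO for Hspa5 and above it for Hyou1. Sel1l, which is needed for degradation of misfolded proteins, was at 57.7, 59.9 and 57.1 TPM with Cardamonin, 77.8, 81.01 and 77.8 with AEG 3482 and 49.3, 59.2 and 65.4 in DMSO (log2 difference -0.43, SE 0.089, adjusted p 1.8e-04). It was 1 of 2 members higher with AEG 3482, the other being Crebrf (log2 difference -0.36, SE 0.11, adjusted p 0.006). The call of Crebrf was lost without Cardamonin replicate 2 (adjusted p 0.054).

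**Figure D5:**
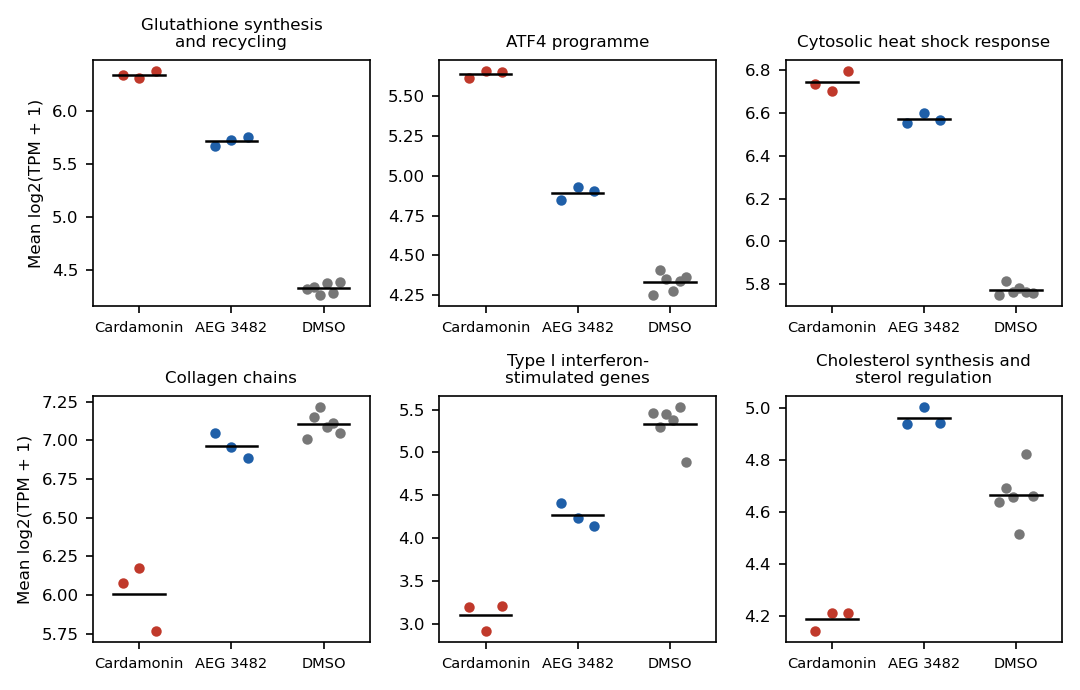
Each panel gives 1 gene list, with the mean log2(TPM + 1) of its tested members in each library as a point and the group mean as a black bar for Cardamonin (3 libraries), AEG 3482 (3) and DMSO (6). For glutathione synthesis, ATF4 genes and heat shock genes Cardamonin is highest and DMSO lowest; for collagens, interferon-stimulated genes and cholesterol synthesis Cardamonin is lowest, and AEG 3482 is above DMSO for cholesterol synthesis alone.

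Matrix genes were mostly higher with AEG 3482. Of 20 tested collagen chains, 18 were called higher with AEG 3482 and 0 higher with Cardamonin in limma (median -0.93), with the same 18 and 0 at an unadjusted p under 0.05. Col3a1, the main chain of type III collagen (chromosome 1, 45311538 to 45349706), was at 1399, 1447 and 974 TPM with Cardamonin, 4951, 4722 and 4522 with AEG 3482 and 2486, 2737 and 3027 in DMSO (log2 difference -1.91, SE 0.11, adjusted p 1.6e-13). Col1a1, of type I collagen, was at 382, 426 and 289 TPM with Cardamonin, 1045, 837 and 752 with AEG 3482 and 821, 935 and 1275 in DMSO (log2 difference -1.27, SE 0.15, adjusted p 7.2e-08). Col6a2, of the beaded type VI network, was at 153, 179 and 117 TPM with Cardamonin, 575, 550.1 and 516 with AEG 3482 and 387, 400.4 and 465 in DMSO (log2 difference -1.88, SE 0.10, adjusted p 8.8e-14). The AEG 3482 libraries were above every DMSO library for Col3a1 and Col6a2 and the Cardamonin libraries below every DMSO library for all 3. Cardamonin replicate 3 was the lowest of its group for each, and without it the collagen counts were again 18 and 0. Col4a1, of basement membrane collagen, was at 198, 202 and 186 TPM with Cardamonin, 309.9, 321 and 311 with AEG 3482 and 176, 197 and 212 in DMSO (log2 difference -0.68, SE 0.088, adjusted p 3.0e-07). Its Cardamonin libraries lay inside the DMSO range and its AEG 3482 libraries above it.

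Other matrix and crosslinking genes gave 31 of 36 tested called higher with AEG 3482 and 0 higher with Cardamonin in limma (median -0.67), with the same counts at an unadjusted p under 0.05, and 29 and 0 without Cardamonin replicate 3. Lox, the lysyl oxidase that crosslinks collagen, was at 430.01, 498 and 299 TPM with Cardamonin, 1543, 1334 and 1287 with AEG 3482 and 1464, 1634 and 1786 in DMSO (log2 difference -1.79, SE 0.11, adjusted p 8.8e-13). Sparc, a collagen-binding matricellular protein, was at 527, 613 and 371 TPM with Cardamonin, 2009.8, 1743 and 1699 with AEG 3482 and 1966, 2164 and 2338 in DMSO (log2 difference -1.88, SE 0.10, adjusted p 6.9e-14). Mfap5, of the elastic microfibrils, was at 98.3, 117 and 74.4 TPM with Cardamonin, 534, 513 and 492 with AEG 3482 and 689.7, 786 and 898 in DMSO (log2 difference -2.42, SE 0.10, adjusted p 7.8e-16). Ogn, a small proteoglycan, was at 6.03, 6.67 and 6.07 TPM with Cardamonin, 56.3, 42.3 and 39.9 with AEG 3482 and 18.7, 28.8 and 40.5 in DMSO (log2 difference -2.68, SE 0.23, adjusted p 2.7e-10). Fn1, fibronectin, was at 2909.7, 3214 and 2360.4 TPM with Cardamonin, 4660.2, 4172 and 3922 with AEG 3482 and 4219.8, 4659.7 and 5560.2 in DMSO (log2 difference -0.60, SE 0.11, adjusted p 6.2e-05). Cardamonin was under every DMSO library for these 5 genes, whereas the AEG 3482 ranges overlapped DMSO for Sparc, Lox and Fn1, stayed under it for Mfap5 and reached above it in Ogn for 2 of 3 libraries. The other 5 members did not pass the test.

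The values are TPM of bulk RNA, so they are shares of each library and not amounts per cell. Whether a smaller part of the cells were fibroblasts, or fibroblasts held a smaller share of these transcripts, was not tested. The 11 fibroblast markers were all called higher with AEG 3482, and their summed level was 4845 to 6029 TPM with Cardamonin, 13183 to 14559 TPM with AEG 3482 and 12087 to 13698 TPM in DMSO. Skeletal muscle markers summed to 0.0937 to 0.275 TPM with Cardamonin and 0.161 to 0.633 TPM with AEG 3482; all 7 were under 1 TPM and were not tested, and Myod1, Myf5 and Ckm were at 0 in all 6 libraries. Keratinocyte markers summed to 1.85 to 1.93 TPM with Cardamonin and 2.40 to 2.62 TPM with AEG 3482, with Krt5 and Dsg3 at 0 in the 6 libraries and 1 of 7 tested, a call towards AEG 3482 that most alternative settings did not keep. Endothelial markers summed to 2.38 to 3.12 TPM and 2.49 to 2.70 TPM, with Emcn at 0 in the 6 libraries and 1 of 7 tested, a call towards Cardamonin that was lost in 4 alternative settings. Macrophage and leukocyte markers summed to 110.0 to 129.5 TPM with Cardamonin and 117 to 126 TPM with AEG 3482, with 1 of 4 tested higher with Cardamonin (Cd68) and 3 higher with AEG 3482, which became 1 with median-ratio scaling and after quantile normalization. Chondrocyte markers summed to 164 to 195 TPM and 232 to 261 TPM, and 1 of 2 tested (Comp) was called, higher with AEG 3482. Schwann cell and melanocyte markers summed to 38.3 to 41.2 TPM and 43.4 to 49.2 TPM, with Tyrp1 at 0 and 1 of 3 tested called in each direction. Adipocyte markers summed to 24.9 to 32.2 TPM with Cardamonin and 6.47 to 8.80 TPM with AEG 3482, nearly all of it Fabp4, while Plin1, Cidec and Lep were at 0. Among the fibroblast markers, Col1a1, Col1a2 and Col3a1 are also in the collagen list. The part of cell composition in the matrix difference was not tested.

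Contractile genes of myofibroblasts followed the matrix, with 18 of 24 tested higher with AEG 3482 and 1 higher with Cardamonin (median -0.46). Tpm2, a tropomyosin, was at 15.2, 16.7 and 14.2 TPM with Cardamonin, 54.7, 54.2 and 53.8 with AEG 3482 and 83.3, 95.7 and 110.5 in DMSO (log2 difference -1.76, SE 0.081, adjusted p 3.2e-15). Acta2, smooth muscle actin, was at 1.84, 1.89 and 1.52 TPM with Cardamonin, 6.35, 5.59 and 5.56 with AEG 3482 and 194, 248 and 323 in DMSO (log2 difference -1.32, SE 0.16, adjusted p 1.2e-07). Vcl, vinculin of focal adhesions, was at 23.03, 23.7 and 24.4 TPM with Cardamonin, 59.6, 57.4 and 57.9 with AEG 3482 and 78.4, 82.99 and 105 in DMSO (log2 difference -1.26, SE 0.085, adjusted p 3.5e-12). All 3 were below DMSO with both compounds and further below with Cardamonin; for Acta2 both compounds lay far under the lowest DMSO library. Mylk, the myosin kinase, was the single member with the reverse order (log2 difference 0.38, SE 0.082, adjusted p 2.9e-04), at 1.49, 1.43 and 1.42 TPM with Cardamonin and 0.926, 0.834 and 0.877 TPM with AEG 3482.

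Genes that respond to TGF-beta or YAP gave 14 of 27 tested higher with AEG 3482 and 4 higher with Cardamonin (median -0.32). Ccn1, a matricellular YAP target, was at 10.9, 10.3 and 7.75 TPM with Cardamonin, 73.01, 71.4 and 60.7 with AEG 3482 and 156, 222 and 263 in DMSO (log2 difference -2.71, SE 0.19, adjusted p 9.1e-12). Tgfbr2, the type II receptor, was at 99.6, 105 and 99.7 TPM with Cardamonin, 188, 198 and 187 with AEG 3482 and 91.4, 101 and 106 in DMSO (log2 difference -0.91, SE 0.069, adjusted p 3.0e-11). Smad3, a signal transducer of the pathway, was at 28.1, 32.2 and 23.3 TPM with Cardamonin, 53.5, 60.02 and 55.7 with AEG 3482 and 28.7, 30.2 and 32.6 in DMSO (log2 difference -1.001, SE 0.093, adjusted p 1.2e-09). Ccn1 was below DMSO with both compounds, and Tgfbr2 and Smad3 were above DMSO with AEG 3482. The 4 members with the reverse order included the ligand Tgfb2, which was at 26.004, 28.5 and 26.2 TPM with Cardamonin, 13.7, 13.6 and 14.3 with AEG 3482 and 12.1, 12.9 and 14.7 in DMSO (log2 difference 0.91, SE 0.078, adjusted p 2.7e-10), and the type I receptor Tgfbr1, which was at 40.2, 41.3 and 40.2 TPM with Cardamonin, 25.01, 23.04 and 24.96 with AEG 3482 and 20.4, 21.7 and 27.7 in DMSO (log2 difference 0.71, SE 0.078, adjusted p 1.8e-08). The type I and type II receptors thus stood in opposite order.

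Matrix metalloproteinases and their inhibitors went both ways (median 0.21). Of 17 tested, 9 were higher with Cardamonin (52.9%) and 7 higher with AEG 3482 (41.2%), beside 24.5% and 35.3% of all genes. Mmp3, stromelysin 1, was at 14938, 14253 and 11845 TPM with Cardamonin, 8342, 7995 and 7618 with AEG 3482 and 20921, 22159.9 and 22769 in DMSO (log2 difference 0.77, SE 0.071, adjusted p 1.1e-09). Mmp13, a collagenase, was at 561, 553 and 357 TPM with Cardamonin, 348, 314 and 306 with AEG 3482 and 1143, 1251 and 1432 in DMSO (log2 difference 0.58, SE 0.12, adjusted p 1.9e-04). Both proteases were below DMSO with either compound, AEG 3482 lower. After quantile normalization the difference of Mmp3 was 0.12 (adjusted p 0.30). Timp3, an inhibitor bound to matrix, was at 38.8, 34.2 and 25.5 TPM with Cardamonin, 77.1, 74.7 and 69.7 with AEG 3482 and 143, 157 and 175 in DMSO (log2 difference -1.16, SE 0.12, adjusted p 8.8e-09). Timp2, a soluble inhibitor, was at 1233, 1299 and 1138 TPM with Cardamonin, 1748, 1708 and 1805 with AEG 3482 and 1443, 1502 and 1565 in DMSO (log2 difference -0.52, SE 0.056, adjusted p 1.3e-08). Mmp2, gelatinase A, was at 685, 763 and 562 TPM with Cardamonin, 976, 1005 and 953 with AEG 3482 and 896, 1004 and 1096 in DMSO (log2 difference -0.56, SE 0.090, adjusted p 7.8e-06). Cardamonin was below every DMSO library for these 3 genes, and AEG 3482 was below DMSO for Timp3, above it for Timp2 and inside its range for Mmp2. The inhibitor Timp1 was likewise higher with AEG 3482 (log2 difference -0.55, SE 0.12, adjusted p 3.6e-04).

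Interferon-stimulated genes had the lowest median of all lists. Of 32 tested members, 30 were called higher with AEG 3482 and 0 higher with Cardamonin in limma (median -1.07), with the same counts at an unadjusted p under 0.05. Across the 15 alternative settings the number higher with AEG 3482 lay between 22 and 31. Ifit1, which binds viral RNA, was at 5.56, 2.95 and 4.47 TPM with Cardamonin, 33.5, 27.6 and 25.7 with AEG 3482 and 44.8, 72.2 and 82.4 in DMSO (log2 difference -2.51, SE 0.19, adjusted p 2.8e-11). Isg15, a ubiquitin-like modifier, was at 8.66, 4.86 and 9.07 TPM with Cardamonin, 41.1, 42.7 and 33.4 with AEG 3482 and 70.1, 85.1 and 113 in DMSO (log2 difference -2.27, SE 0.17, adjusted p 3.2e-11). Irf7, a transcription factor that amplifies the response, was at 8.69, 6.58 and 9.605 TPM with Cardamonin, 37.6, 35.2 and 26.6 with AEG 3482 and 46.4, 62.01 and 71.97 in DMSO (log2 difference -1.88, SE 0.15, adjusted p 1.2e-10). The DMSO libraries were highest in all 3, AEG 3482 was below them and Cardamonin lower again, lowest in replicate 2. Stat2, of the activating complex, was at 13.1, 11.4 and 17.2 TPM with Cardamonin, 33.7, 28.8 and 29.1 with AEG 3482 and 26.6, 35.4 and 40.2 in DMSO (log2 difference -1.10, SE 0.11, adjusted p 8.5e-09). Its partner Irf9 was at 24.1, 18.3 and 26.6 TPM with Cardamonin, 50.1, 48.1 and 48.02 with AEG 3482 and 40.5, 50.4 and 58.7 in DMSO (log2 difference -1.07, SE 0.10, adjusted p 2.0e-09). For Stat2 and Irf9 the AEG 3482 libraries lay inside the DMSO range. Ifi27, a mitochondrial interferon-induced protein, was at 351, 318 and 429 TPM with Cardamonin, 781, 703 and 733 with AEG 3482 and 594, 604 and 667 in DMSO (log2 difference -1.02, SE 0.071, adjusted p 6.0e-12). Ifi35 was at 22.9, 20.5 and 27.5 TPM with Cardamonin, 57.2, 58.6 and 54.4 with AEG 3482 and 37.1, 42.4 and 48.5 in DMSO (log2 difference -1.24, SE 0.097, adjusted p 5.6e-11). In these 2 genes AEG 3482 was above every DMSO library and Cardamonin below, so the position of AEG 3482 beside DMSO varied within the list. Mx2 (log2 difference -0.02, SE 0.18, adjusted p 0.92) and Cxcl10 (log2 difference 0.39, SE 0.22, adjusted p 0.14) did not pass the test. Cxcl10 had an adjusted p of 0.028 with a pseudocount of 0.1 and 0.029 after quantile normalization, higher with Cardamonin in both settings.

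The windows at gene starts were searched for the core of the interferon-stimulated response element bound by the complex of STAT2 and IRF9, which is TTTC, any 2 bases and TTTC again. It occurred in 343 of 9336 genes (3.67%), in 15 of 24 interferon-stimulated genes (62.5%) and in 3 of 12 genes of antigen presentation (25%). The interferon list gathers genes of this response, so its share is a description that was not tested. A match is not a measured binding site. The 3 matching genes with the largest differences were chosen and are shown in the same way, Ifit1 at chr19:34640768-34640849, Isg15 at chr4:156200839-156200920 and Ifit3b at chr19:34607767-34607848.
Ifit1: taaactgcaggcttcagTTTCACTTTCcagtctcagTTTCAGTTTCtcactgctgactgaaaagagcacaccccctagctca
Isg15: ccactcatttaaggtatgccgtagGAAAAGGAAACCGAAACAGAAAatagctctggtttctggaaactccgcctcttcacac
Ifit3b: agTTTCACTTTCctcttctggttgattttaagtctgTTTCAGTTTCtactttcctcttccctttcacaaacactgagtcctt
Ifit1 and Ifit3b held 2 matches each and Isg15 held 3 overlapping ones. Ifit3b, a close relative of Ifit3 with 55.3% shared 31-base words, was at 3.202, 1.35 and 3.27 TPM with Cardamonin, 13.8, 11.8 and 10.9 with AEG 3482 and 16.6, 29.05 and 32.3 in DMSO (log2 difference -1.91, SE 0.21, adjusted p 2.1e-08). Its order was that of Ifit1.

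Antigen presentation and the immunoproteasome, the interferon-inducible form of the proteasome, gave 8 of 14 tested higher with AEG 3482 and 2 higher with Cardamonin (median -0.52). Psmb9, an inducible core subunit, was at 1.34, 1.66 and 0.878 TPM with Cardamonin, 7.21, 6.47 and 6.604 with AEG 3482 and 21.99, 27.04 and 34.4 in DMSO (log2 difference -1.77, SE 0.11, adjusted p 8.5e-13). Psmb8, another, was at 7.05, 6.399 and 4.61 TPM with Cardamonin, 13.1, 13.7 and 13.2 with AEG 3482 and 54.4, 71.2 and 77.1 in DMSO (log2 difference -1.05, SE 0.11, adjusted p 1.1e-08). Tap1, the peptide transporter, was at 15.2, 12.9 and 11.6 TPM with Cardamonin, 33.1, 35.5 and 28.9 with AEG 3482 and 24.1, 31.6 and 34.02 in DMSO (log2 difference -1.24, SE 0.15, adjusted p 5.9e-08). Both inducible subunits were below DMSO with either compound, and for Tap1 the AEG 3482 libraries overlapped DMSO. The class I heavy chain H2-D1 was 1 of the 2 with the reverse order, at 740.4, 728 and 882 TPM with Cardamonin, 625.2, 646 and 624 with AEG 3482 and 839, 888 and 1004 in DMSO (log2 difference 0.30, SE 0.080, adjusted p 0.0019). The heavy chain H2-K1 (log2 difference -0.08, SE 0.082, adjusted p 0.42) did not pass the test.

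Cholesterol synthesis genes, which SREBP2 raises when membrane sterol is low, were higher with AEG 3482 almost throughout. Of 26 tested members, 22 were called higher with AEG 3482 and 1 higher with Cardamonin (median -0.83). Srebf2, which encodes SREBP2, was at 28.01, 31.99 and 34.5 TPM with Cardamonin, 57.9, 64.5 and 60.4 with AEG 3482 and 33.3, 37.5 and 42.5 in DMSO (log2 difference -0.93, SE 0.077, adjusted p 1.4e-10). Hsd17b7, a late enzyme, was at 12.2, 13.8 and 13.1 TPM with Cardamonin, 42.8, 42.7 and 43.9 with AEG 3482 and 11.2, 11.8 and 14.3 in DMSO (log2 difference -1.65, SE 0.083, adjusted p 1.3e-14). Both were above DMSO with AEG 3482 and inside or near the DMSO range with Cardamonin. Idi1, isopentenyl diphosphate isomerase, was at 11.8, 12.8 and 12.8 TPM with Cardamonin, 42.9, 39.7 and 38.7 with AEG 3482 and 24.8, 26.5 and 32.5 in DMSO (log2 difference -1.62, SE 0.087, adjusted p 4.6e-14). Hmgcs1, which makes the precursor of mevalonate, was at 20.96, 22.4 and 22.6 TPM with Cardamonin, 50.6, 48.5 and 47.7 with AEG 3482 and 48.9, 55.5 and 65.4 in DMSO (log2 difference -1.12, SE 0.082, adjusted p 1.6e-11). Mvk, mevalonate kinase, was at 10.6, 12.7 and 11.9 TPM with Cardamonin, 28.6, 29.99 and 29.4 with AEG 3482 and 22.02, 26.1 and 27.8 in DMSO (log2 difference -1.26, SE 0.084, adjusted p 2.7e-12). Cardamonin was below the DMSO range in these 3. The single member higher with Cardamonin was Abca1, the cholesterol exporter, at 38.5, 41.4 and 36.4 TPM with Cardamonin, 24.6, 25.6 and 29.5 with AEG 3482 and 30.3, 32.6 and 41.1 in DMSO (log2 difference 0.53, SE 0.12, adjusted p 4.2e-04). Soat2, which stores cholesterol as ester, was among the largest differences toward Cardamonin, as given above.

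Fatty acid synthesis genes gave 6 of 13 tested higher with AEG 3482 (46.2%) and 2 higher with Cardamonin (15.4%), with a median of -0.26. Over all genes the shares were 35.3% and 24.5%. Scd1, a desaturase, was at 20.3, 24.7 and 20.6 TPM with Cardamonin, 42.98, 41.97 and 44.3 with AEG 3482 and 37.6, 43.7 and 51.03 in DMSO (log2 difference -0.95, SE 0.080, adjusted p 2.1e-10). Elovl6, which elongates palmitate, was at 13.9, 14.4 and 14.5 TPM with Cardamonin, 4.89, 5.25 and 4.94 with AEG 3482 and 8.31, 9.35 and 9.66 in DMSO (log2 difference 1.34, SE 0.064, adjusted p 5.3e-15). The 2 enzymes had opposite orders, and Elovl6 was below DMSO with AEG 3482 and above it with Cardamonin. Fasn did not pass the test (log2 difference -0.26, SE 0.21, adjusted p 0.28), with overlapping libraries at 13.6, 20.4 and 18.6 TPM and 29.7, 15.3 and 20.3 TPM.

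Of 32 tested inflammatory genes controlled by NF-kB, 10 were higher with Cardamonin (31.25%) and 7 higher with AEG 3482 (21.9%), with a median of 0.06. Among all genes the shares were 24.5% and 35.3%. Without Cardamonin replicate 3 the counts were 14 and 5. Lcn2, an iron-binding acute phase protein, was at 501, 543 and 397 TPM with Cardamonin, 162, 153 and 167 with AEG 3482 and 2027, 2417 and 2803 in DMSO (log2 difference 1.56, SE 0.096, adjusted p 5.6e-13). Saa3, serum amyloid A3, was at 5373, 5121 and 3033 TPM with Cardamonin, 2335, 2230.3 and 2033 with AEG 3482 and 29576, 32566 and 34957 in DMSO (log2 difference 0.99, SE 0.13, adjusted p 6.3e-07). Both were far below DMSO with either compound, AEG 3482 lowest, as with Nos2. Vcam1, an adhesion molecule, was at 37.1, 40.3 and 22.2 TPM with Cardamonin, 86.5, 68.4 and 73.8 with AEG 3482 and 390.4, 459 and 511 in DMSO (log2 difference -1.21, SE 0.13, adjusted p 9.2e-09). Ccl7, a chemokine, was at 220.01, 207 and 166 TPM with Cardamonin, 449.9, 387 and 370.4 with AEG 3482 and 1898, 2109 and 2227 in DMSO (log2 difference -1.03, SE 0.088, adjusted p 2.9e-10). These were also below DMSO with both compounds, but Cardamonin was lowest. Ptgs2, the inducible cyclooxygenase, was at 231, 241 and 178 TPM with Cardamonin, 139, 145 and 149 with AEG 3482 and 21.8, 24.8 and 30.8 in DMSO (log2 difference 0.57, SE 0.10, adjusted p 4.2e-05). Ptges, which makes prostaglandin E2 downstream of it, was at 164, 172 and 153 TPM with Cardamonin, 79.6, 75.8 and 79.5 with AEG 3482 and 78.3, 86.9 and 92.9 in DMSO (log2 difference 1.05, SE 0.089, adjusted p 2.3e-10). For Ptgs2 both compounds lay far above DMSO, Cardamonin higher. The other 15 members did not pass the test.

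Immediate early and AP-1 genes gave 11 of 20 tested higher with AEG 3482 and 2 higher with Cardamonin (median -0.30). Jun was at 77.8, 77.9 and 84.3 TPM with Cardamonin, 134, 139 and 135 with AEG 3482 and 82.7, 89.6 and 96.5 in DMSO (log2 difference -0.76, SE 0.062, adjusted p 1.1e-10). Dusp1, a phosphatase of MAP kinases, was at 38.3, 43.5 and 30.96 TPM with Cardamonin, 115, 131 and 98.3 with AEG 3482 and 78.04, 84.2 and 97.1 in DMSO (log2 difference -1.59, SE 0.10, adjusted p 1.8e-12). Klf4, a zinc finger factor, was at 34.7, 32.3 and 36.1 TPM with Cardamonin, 75.6, 79.3 and 75.95 with AEG 3482 and 19.996, 22.8 and 27.01 in DMSO (log2 difference -1.14, SE 0.11, adjusted p 2.6e-09). AEG 3482 was above every DMSO library for all 3, and Cardamonin was below DMSO for Dusp1. Feedback genes of the ERK pathway had a median of -0.31. Of 13 tested, 8 were higher with AEG 3482 (61.5%) and 4 higher with Cardamonin (30.8%), beside 35.3% and 24.5% of all genes. Dusp6, the ERK phosphatase, was at 15.55, 18.2 and 16.7 TPM with Cardamonin, 28.2, 28.3 and 29.1 with AEG 3482 and 18.1, 20.9 and 21.5 in DMSO (log2 difference -0.73, SE 0.079, adjusted p 1.6e-08). Dusp4, a nuclear phosphatase of the same family, was at 35.5, 36.5 and 42.4 TPM with Cardamonin, 12.1, 13.6 and 16.2 with AEG 3482 and 1.49, 2.18 and 2.57 in DMSO (log2 difference 1.39, SE 0.12, adjusted p 2.5e-10). The 2 phosphatases stood in opposite order. Wnt feedback genes had a median of -0.91, or -1.18 to -0.12 over the alternative settings. Of 11 tested, 6 were higher with AEG 3482 (54.5%) and 3 higher with Cardamonin (27.3%), beside the same 35.3% and 24.5% of all genes. Those higher with AEG 3482 include the secreted inhibitor Sfrp1, which was at 12.1, 16.9 and 10.3 TPM with Cardamonin, 40.7, 34.6 and 35.4 with AEG 3482 and 64.98, 77.8 and 89.5 in DMSO (log2 difference -1.45, SE 0.11, adjusted p 6.8e-11).

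Targets of p53 were more often higher with AEG 3482, in 16 of 25 tested members against 5 higher with Cardamonin (median -0.28). Cdkn1a, the cell cycle inhibitor p21, was at 801, 758 and 787 TPM with Cardamonin, 1142, 1224 and 1172 with AEG 3482 and 397, 445 and 465 in DMSO (log2 difference -0.59, SE 0.063, adjusted p 1.4e-08). Phlda3, an inhibitor of AKT, was at 336, 336 and 350.5 TPM with Cardamonin, 581, 665 and 609.7 with AEG 3482 and 246, 264 and 296 in DMSO (log2 difference -0.86, SE 0.074, adjusted p 2.9e-10). Both were above DMSO with either compound and highest with AEG 3482. Sesn1, a sestrin, was at 6.49, 7.12 and 5.29 TPM with Cardamonin, 22.5, 21.5 and 20.6 with AEG 3482 and 28.7, 30.3 and 32.2 in DMSO (log2 difference -1.63, SE 0.068, adjusted p 3.9e-16). It was below DMSO with both. Mdm2, the ligase that destroys p53, did not pass the test (log2 difference 0.05, SE 0.078, adjusted p 0.61). Of 28 tested replication and mitosis genes, 12 were higher with AEG 3482 (42.9%) and 8 higher with Cardamonin (28.6%), with a median of -0.23. Among all genes the shares were 35.3% and 24.5%. In the fit with a replicate block the counts were 10 and 3. Pcna, the sliding clamp, was at 111, 98.3 and 112 TPM with Cardamonin, 53.3, 58.8 and 55.1 with AEG 3482 and 46.3, 48.03 and 53.2 in DMSO (log2 difference 0.93, SE 0.071, adjusted p 3.7e-11). Cdt1, which licenses origins, was at 21.3, 21.7 and 25.7 TPM with Cardamonin, 8.15, 7.08 and 8.298 with AEG 3482 and 7.74, 8.71 and 10.4 in DMSO (log2 difference 1.43, SE 0.11, adjusted p 6.5e-11). Mcm4, of the helicase, was at 7.17, 6.84 and 6.85 TPM with Cardamonin, 18.1, 17.3 and 17.1 with AEG 3482 and 11.5, 12.8 and 14.1 in DMSO (log2 difference -1.22, SE 0.063, adjusted p 2.2e-14). Hmgb2, a chromatin protein of dividing cells, was at 3.85, 3.704 and 3.97 TPM with Cardamonin, 23.5, 20.96 and 21.8 with AEG 3482 and 3.59, 4.61 and 5.63 in DMSO (log2 difference -2.25, SE 0.12, adjusted p 5.8e-14). Pcna and Cdt1 were above DMSO with Cardamonin, whereas Mcm4 and Hmgb2 were above DMSO with AEG 3482.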

How the data were processed

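RNA was ribodepleted and sequenced on a HiSeq4000, per the labels. The authors deposited TPM per gene for 30 libraries, made with kallisto 0.43.1 and mm10 per the submitters' processing notes, and summarised with tximport per the series text. Sequencing depth is not carried by TPM. The annotation version is not given in the sources used here; symbols were matched for 98.8% of genes.

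The 12454 genes that reached 1 TPM in 3 or more of the 6 libraries were tested with limma 3.58.1 (R 4.3.3) on log2(TPM + 1), with 9 groups and all 30 libraries in 1 fit, a mean-variance trend and Benjamini-Hochberg adjustment over all 12454 genes, threshold 0.05. Fold changes are on that scale and understate low genes. The procedure was tested on simulated data. Members, gene lists and tests were chosen with earlier results of these data known. Named genes were called, at 5 TPM or more in the higher compound and without overlap: the 12 largest each way, the 5 largest each way with DMSO in between, the 3 most abundant at 2-fold or more, and list members; list members that were not called are named as such, and these and Mylk, which is under 5 TPM, were chosen after their values were seen. Some genes that the rule names are not reported here. No list was tested as a set. Alternatives were another pseudocount, filter, scaling or fit, a replicate block and leaving out each library.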

Additional observations from a re-analysis of the deposited data

Results flagged for a closer look

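Among the 36 genes named by size of difference or abundance, the library spread of the 6 DMSO samples was checked for a sample standing apart from the others. Trib3 was at 3.05 TPM in DMSO replicate 1, the lowest of the group, with the nearest library at 4.26 TPM. Car6 was at 0.287 TPM in DMSO replicate 6, the highest of the group, with the nearest library at 0.130 TPM. Chance flags about 1 in 20 groups in this way. DMSO levels are not part of the difference between Cardamonin and AEG 3482, though the DMSO libraries share in its estimate of spread, and the 3 libraries of each compound were too few for this check.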

How the results depend on the processing

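Of 210 genes checked one by one, 196 kept their direction and their side of the threshold in every one of 15 alternative settings that held them, among them the 36 that the rule takes by size of difference or abundance. Single settings ended the calls of Crebrf, Cul3, Glrx, Mmp3 and Mylk. The number of called genes was 6878 to 7069 when 1 library of either compound was left out. The one count of lists that moved was that of lists with more than 50% of members higher with AEG 3482, which was 14 and became 9 with no filter on low values. Counts within some lists moved by over 1.5 times: replication and mitosis genes higher with Cardamonin numbered 3 to 8, p53 targets 3 to 5 and Wnt genes 0 to 4, respiratory chain subunits higher with AEG 3482 numbered 1 to 6, and mitochondrially encoded proteins higher with Cardamonin 1 to 4. Replication and mitosis genes higher with AEG 3482 numbered 7 to 14 (12 in the reported fit). Medians moved by more than the spread between replicates in 31 of 37 lists, in 108 of 555 values: with no filter on low values that of Wnt genes went from -0.91 to -0.12 and that of quinone and xenobiotic genes from 0.42 to 0.24. The median of the HIF list changed sign. With a pseudocount of 0.1, 1290 called genes reached 2-fold in place of 909. Of named genes that did not pass the test, Keap1 reversed to 0.0091 with median-ratio scaling, Fth1 to -0.47 after quantile normalization, and Mx2 to 0.044 with median-ratio scaling, 0.058 after quantile normalization, 0.018 when rescaled without the 20 most abundant genes and -0.12 to 0.11 over the fits that leave out 1 library each. The deviations of libraries with the same number correlated at 0.11, 0.02 and 0.09, so the numbers were not taken to pair the libraries (Cardamonin replicate 2 did not correlate best with its own number); a replicate block over the 6 libraries gave 7026 called genes against 7272 without it, with the lost calls of Glrx (adjusted p 0.052) and Mylk (adjusted p 0.052). Depth is unknown, so the precision of low values rests on the spread between libraries alone.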

Other observations

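Of 41 tested lysosome and autophagy genes, 16 were called higher with Cardamonin (39.0%) and 10 higher with AEG 3482 (24.4%), with a median of 0.07. Among all genes the shares were 24.5% and 35.3%. Gla, the lysosomal alpha-galactosidase, was at 100.1, 91.4 and 109 TPM with Cardamonin, 25.01, 31.4 and 28.9 with AEG 3482 and 21.6, 23.8 and 30.03 in DMSO (log2 difference 1.78, SE 0.11, adjusted p 9.0e-13). Optn, an autophagy receptor, was at 31.9, 29.7 and 30.5 TPM with Cardamonin, 16.9, 14.9 and 13.8 with AEG 3482 and 21.2, 24.2 and 28.4 in DMSO (log2 difference 0.97, SE 0.072, adjusted p 1.8e-11). Ctsl, a lysosomal protease, was at 2268, 2199 and 2222 TPM with Cardamonin, 1289, 1219 and 1302 with AEG 3482 and 1213, 1338 and 1654 in DMSO (log2 difference 0.81, SE 0.075, adjusted p 1.1e-09). Wipi1, of the forming autophagosome, was at 68.3, 69.1 and 59.6 TPM with Cardamonin, 150.2, 141 and 142 with AEG 3482 and 105, 120.3 and 126 in DMSO (log2 difference -1.13, SE 0.073, adjusted p 1.3e-12). Tfeb, a transcription factor of lysosome genes, was at 5.05, 5.75 and 5.99 TPM with Cardamonin, 10.4, 11.7 and 14.2 with AEG 3482 and 5.22, 6.53 and 6.88 in DMSO (log2 difference -0.98, SE 0.14, adjusted p 1.2e-06). The first 3 were higher with Cardamonin and the last 2 higher with AEG 3482, without overlap. Median-ratio scaling gave 22 and 8.

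Metallothioneins and zinc transporters gave 8 of 14 tested higher with Cardamonin and 3 higher with AEG 3482 (median 0.22), led by Mt3 and Mt1. Slc30a6, a zinc exporter of the Golgi, was at 16.7, 16.8 and 16.96 TPM with Cardamonin, 9.61, 8.68 and 8.03 with AEG 3482 and 12.1, 12.7 and 13.8 in DMSO (log2 difference 0.87, SE 0.069, adjusted p 7.0e-11). Glycolysis gave 7 of 22 higher with Cardamonin (31.8%) and 9 higher with AEG 3482 (40.9%), with a median of -0.08. Among all genes the shares were 24.5% and 35.3%. Hk2, the inducible hexokinase, was at 57.5, 51.5 and 58.1 TPM with Cardamonin, 15.1, 16.7 and 18.7 with AEG 3482 and 15.7, 18.9 and 24.6 in DMSO (log2 difference 1.67, SE 0.13, adjusted p 2.4e-11). Aldoc, an aldolase, was at 1.81, 1.09 and 1.04 TPM with Cardamonin, 7.38, 7.93 and 8.33 with AEG 3482 and 2.95, 3.65 and 5.42 in DMSO (log2 difference -1.95, SE 0.17, adjusted p 2.3e-10). HIF targets outside glycolysis gave 6 of 20 higher with Cardamonin (30%) and 7 higher with AEG 3482 (35%), near the shares of all genes (median 0.01). Vegfa, the vascular growth factor, was at 216, 229 and 214 TPM with Cardamonin, 92.7, 88.4 and 95.2 with AEG 3482 and 72.9, 83.4 and 98.3 in DMSO (log2 difference 1.24, SE 0.11, adjusted p 3.6e-10). Adm, the peptide adrenomedullin, was at 67.7, 63.2 and 67.1 TPM with Cardamonin, 249, 232 and 225 with AEG 3482 and 209.7, 237 and 320.1 in DMSO (log2 difference -1.82, SE 0.11, adjusted p 6.6e-13). Hk2 and Vegfa were higher with Cardamonin in every replicate, Aldoc and Adm higher with AEG 3482.

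Mitochondrially encoded proteins gave 2 of 13 tested higher with Cardamonin (15.4%) and 0 higher with AEG 3482 in limma (median 0.12). At an unadjusted p under 0.05 the counts were also 2 and 0. Nuclear respiratory chain subunits gave 15 (32.6%) and 5 (10.9%) of 46 (median 0.06), all under 2-fold. Over all genes the shares were 24.5% and 35.3%, so both mitochondrially encoded shares were below those of all genes. Tubulins gave 2 of 12 higher with Cardamonin and 7 higher with AEG 3482 (median -0.26), where Tuba1a and Tuba1b share most of their 31-base words. Insulin-like growth factor genes gave 2 of 14 higher with Cardamonin (14.3%) and 6 higher with AEG 3482 (42.9%), with a median of -0.23. The AEG 3482 share was near the 35.3% of all genes, and the Cardamonin share was below their 24.5%. Igfbp5, a binding protein, was at 13.6, 17.01 and 7.96 TPM with Cardamonin, 30.4, 24.2 and 26.3 with AEG 3482 and 166, 197 and 245 in DMSO (log2 difference -1.07, SE 0.16, adjusted p 3.6e-06). Igfbp4, another, was at 629.9, 869.8 and 402 TPM with Cardamonin, 1254, 1191 and 1209 with AEG 3482 and 1925, 2037 and 2239 in DMSO (log2 difference -1.01, SE 0.15, adjusted p 3.7e-06). Both were higher with AEG 3482 without overlap.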
